A study of Caenorhabditis elegans with 21 samples.

Results

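Whole-worm transcriptomes of 2 Caenorhabditis elegans mutants were compared, rhy-1(ok1402) with 3 libraries against vhl-1(ok161) with 3 libraries, which make 6 of the 21 libraries of the series. The libraries were taken by their titles, and all genes were used: 22037 genes had summed estimated counts, of which 13043 passed the expression filter and were tested. The series holds 7 genotypes with 3 libraries each. Besides the rhy-1 and vhl-1 mutants, the results use egl-9(sa307) and egl-9(sa307);vhl-1(ok161) mutants and, as wild type, the strain N2. Means are also given for hif-1(ia4) and egl-9(sa307) hif-1(ia4) mutants. All libraries came from synchronized worms at the young adult stage, before eggs were visible, that had fed on OP50 bacteria on NGM agar, with no treatment named. Each library pooled 30 to 50 whole worms and was made with SmartSeq2, a full-length cDNA method that does not mark the strand. Each mutated gene is represented by 1 allele and no rescue is named. The labels do not tell whether libraries of 1 genotype are separate cultures, so every p-value reflects the scatter of these libraries alone. In whole worms, fewer cells of a type and less RNA per cell cannot be told apart.

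HIF-1 is the transcription factor through which animal cells answer low oxygen. When oxygen is present, the prolyl hydroxylase EGL-9 marks HIF-1, and VHL-1, the substrate-binding part of a ubiquitin ligase, recognises the mark and sends HIF-1 to the proteasome. RHY-1, a membrane protein of the acyltransferase type, acts upstream of EGL-9. It holds back CYSL-1, a protein related to cysteine synthases that binds and inhibits EGL-9. EGL-9 is also known to restrain HIF-1 by a route that does not need VHL-1. The comparison therefore sets the loss of an upstream regulator of EGL-9 against the loss of the ligase subunit that acts after it. Neither genotype carries a hif-1 or egl-9 allele in the labels.

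The 3 rhy-1 libraries held 10102598, 9821918 and 9347410 estimated counts, against 8906697, 8737842 and 8480272 in the 3 vhl-1 libraries. On the first principal component of the 21 libraries, which carried 43.3% of the variance, the rhy-1 libraries lay at 53.9, 49.2 and 47 and the vhl-1 libraries, which were more spread, at -11.3, 13 and -32. Levels are given as read counts scaled to library size (CPM), and differences between the mutants as log2 fold changes of rhy-1 over vhl-1, with the standard error after ±. The vhl-1 transcript (chromosome X, 11307356 to 11308518, plus strand) had 1.19, 2.2 and 0.947 CPM in rhy-1, against no count in any vhl-1 library and 1.76, 2.24 and 1.09 CPM in N2. It was at least 13-fold higher in rhy-1, against a floor of 3 counts over the vhl-1 group. The rhy-1 transcript (chromosome II, 9161379 to 9163448, plus strand) was not lost in its own mutant. It had 163.99, 161 and 179 CPM in rhy-1, against 155, 142 and 139.5 CPM in vhl-1 and 40.8, 35.1 and 35.8 CPM in N2, a log2 fold change of 0.21 ± 0.08 (edgeR adjusted p = 0.093037), so its total level does not check the deletion. Positions are from the WBcel235 annotation; the submitters' build is not given in the sources used here.

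Between the mutants, 1852 of 13043 tested genes (14.2%) were called, meaning that the Benjamini-Hochberg adjusted p of edgeR's quasi-likelihood F-test was below 0.05. Of these, 1097 (8.41% of the tested genes) were higher in rhy-1 and 755 (5.79%) lower. The median log2 fold change over all tested genes was 0.02, and the median size among called genes was 0.89. At least 2-fold differences were found in 815 called genes (6.25%), 611 higher and 204 lower in rhy-1. The 3 libraries of one mutant did not overlap with those of the other in 1823 of the called genes and in 4323 of all tested genes (33.1%). Other settings moved the counts: 851 genes were called with the mean level of L4 molt genes, markers of the last larval molt, in each library as a covariate, and 989 with transcripts tested one by one. That molt level itself differed between the mutants, at 1.19 to 2.35 above the N2 mean in rhy-1 and 0.03 to 0.79 in vhl-1 (log2). Adjusting for it can therefore also remove differences between the genotypes. Single libraries moved them as well: without vhl-1 replicate 3 there were 1192 called genes, 683 of them higher, and without rhy-1 replicate 2 there were 497 lower genes.

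**Figure D1:**
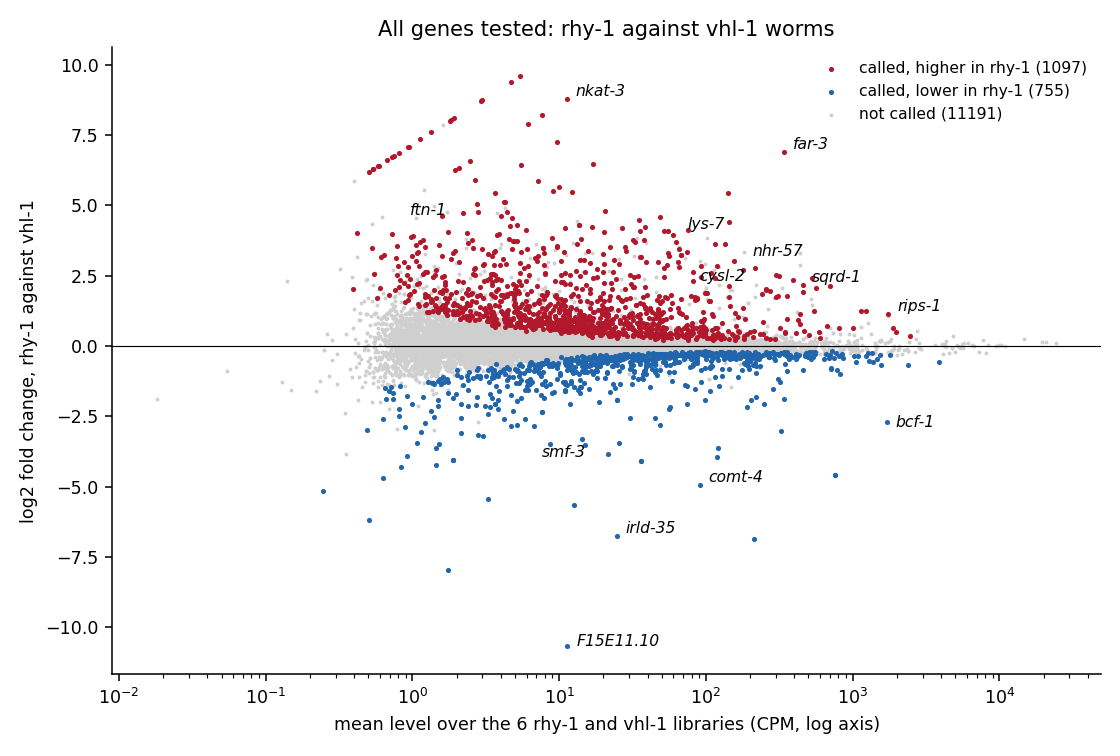
Log2 fold change of rhy-1 over vhl-1 (vertical axis) against the mean level in the 6 libraries (horizontal axis, CPM, log scale) for 13043 genes. The 1097 genes called higher in rhy-1, the 755 called lower and the 11191 not called are coloured apart, and the points on the upper left diagonal are genes with 0 counts in vhl-1, whose fitted change depends on the prior count.

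Against N2, which serves as reference for both mutants, 3826 genes (29.3%) were called in rhy-1, 2169 higher (16.6%) and 1657 lower (12.7%). In vhl-1, 1591 genes (12.2%) were called, 819 higher (6.28%) and 772 lower (5.92%). The egl-9 and egl-9;vhl-1 libraries are not among those contrasted between rhy-1 and vhl-1, but all 21 libraries were fitted together. They therefore share in the filter, scaling and estimated scatter of that contrast. Between egl-9 and N2, 3352 genes (25.7%) were called, 1921 higher (14.7%) and 1431 lower (11%) in egl-9. Of the 1097 genes higher in rhy-1 than in vhl-1, 584 were higher in egl-9 than in N2, which is 53.2% of the 1097 and 30.4% of the 1921, and 64 were lower. Their median log2 fold change of egl-9 over N2 was 0.66, against 0.00 over all tested genes. Of the 755 genes lower in rhy-1, 269 were lower in egl-9 than in N2 (35.6% of the 755 and 18.8% of the 1431) and 120 were higher, with a median of -0.14. The 584 became 381 without vhl-1 replicate 3. The 269 became 172 without rhy-1 replicate 1, 155 without rhy-1 replicate 2 and 158 without vhl-1 replicate 3.

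The egl-9 and egl-9;vhl-1 mutants differ in the labels by the vhl-1 allele alone. Between them 1027 genes (7.87%) were called, 800 higher (6.13%) and 227 lower (1.74%) in egl-9. Of the 1097 genes higher in rhy-1 than in vhl-1, 159 (14.5%, and 19.9% of the 800) were higher in egl-9 than in egl-9;vhl-1 and 31 lower. Of the 755 genes lower in rhy-1, 48 (6.36%, and 21.1% of the 227) were lower in egl-9 and 24 higher. With single libraries left out, the count of 159 moved between 55, without egl-9 replicate 1, and 303, without vhl-1 replicate 2. That of 48 moved between 17 and 80, without egl-9 replicate 1 and 2. Other settings lowered both counts further or as far, to 38 and 18 with the L4 molt covariate and to 25 and 16 by single transcripts.

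Among the genes of the pathway itself, 2 of 10 tested members, vhl-1 and cysl-1, were higher in rhy-1 and 0 lower. In this list 20% were called (median log2 fold change 0.00). Here and in later lists the share called stands beside 14.2% of all tested genes, 8.41% higher and 5.79% lower. Against N2 the list, which includes the mutated genes rhy-1 and vhl-1, gave 3 higher and 1 lower member in each mutant. The count of 2 in this list moved to 1 with the filter at 30 counts or with only these 6 libraries fitted. The hif-1 transcript had 111, 99.9 and 104.2 CPM in rhy-1, against 101, 109 and 107 CPM in vhl-1 and 131.4, 105 and 109 CPM in N2. In hif-1 the mutants differed by -0.01 ± 0.11 (edgeR adjusted p = 0.9693), with overlapping libraries, and neither mutant was called against N2. The egl-9 transcript, which HIF-1 itself is known to raise, had 56.4, 49.4 and 59.7 CPM in rhy-1, against 61.7, 51.5 and 51.1 CPM in vhl-1 and 20.7, 19.1 and 22.2 CPM in N2. The egl-9 difference was 0.01 ± 0.10 (edgeR adjusted p = 0.95926), with overlapping libraries, and both mutants were called higher than N2. The cysl-1 transcript, for the EGL-9 inhibitor held back by RHY-1, had 56.2, 62.0 and 74.4 CPM in rhy-1, against 29.6, 41.3 and 30.2 CPM in vhl-1 and 19.0, 17.2 and 19.7 CPM in N2. For cysl-1 the log2 fold change was 0.93 ± 0.12 (edgeR adjusted p = 5.75e-06), with no overlap between the mutants, and both mutants were called higher than N2. The genes for the HIF-1 partner aha-1 (-0.41), the ubiquitin ligase subunits cul-2 (-0.02), elb-1 (0.03) and rbx-1 (-0.24), and the EGL-9-binding protein swan-1 (-0.09) were not called between the mutants.

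The known HIF-1 targets went both ways: of 15 tested, 8 were higher in rhy-1 and 5 lower (86.7% called, median log2 fold change 0.79). Against N2, 11 were higher and 1 lower in rhy-1 (median 2.17), and 11 were higher and 2 lower in vhl-1 (median 2.11). Those 2 lower in vhl-1 were ftn-1 and ftn-2, which count among the 8 higher in rhy-1 than in vhl-1. In neither was rhy-1 called against N2, as given below. The 8 are therefore not all called above N2 in rhy-1, and the median of 0.79 pools targets above and below N2. The nuclear receptor gene nhr-57 (chromosome V, 4131889 to 4135102, plus strand), used as a reporter of HIF-1 activity, had 306, 312 and 315 CPM in rhy-1, against 49.1, 42.8 and 50.4 CPM in vhl-1 and 7.96, 6.83 and 5.31 CPM in N2. Between the mutants nhr-57 differed by 2.71 ± 0.11 (edgeR adjusted p = 7.49e-14), with every rhy-1 library above every vhl-1 library, and both mutants were called higher than N2. The cyanoalanine synthase gene cysl-2 (chromosome II, 14492874 to 14494451, minus strand), whose product uses up cyanide and releases sulfide, had 427, 423 and 446 CPM in rhy-1, against 94.9, 107 and 132 CPM in vhl-1 and 15.8, 15.8 and 19.7 CPM in N2. In cysl-2 the mutants differed by 1.95 ± 0.11 (edgeR adjusted p = 1.19e-11), without overlap, and both mutants were called higher than N2. The gene sqrd-1 (chromosome IV, 14219871 to 14224440, plus strand), for the sulfide:quinone oxidoreductase that starts sulfide breakdown in mitochondria, had 731, 652 and 787 CPM in rhy-1, against 160.4, 231 and 179 CPM in vhl-1 and 5.68, 7.3 and 4.58 CPM in N2. The sqrd-1 difference was 1.93 ± 0.15 (edgeR adjusted p = 1.6e-08), with no overlap between the mutants, and both mutants were called higher than N2. The rhy-1 levels of these genes exceeded N2 by 5.53, 4.66 and 6.94 on the log2 scale, and the vhl-1 levels by 2.81, 2.71 and 5.02. In libraries outside the comparison nhr-57 averaged 427 CPM in egl-9, 411 CPM in egl-9;vhl-1, 5.09 CPM in hif-1 and 3.60 CPM in egl-9 hif-1, and sqrd-1 1111 CPM in egl-9, 1374 CPM in egl-9;vhl-1, 1.8 CPM in hif-1 and 1.24 CPM in egl-9 hif-1.

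The methyltransferase gene rips-1 (chromosome V, 3772021 to 3774609, plus strand) had 2653, 2240.5 and 2317 CPM in rhy-1, against 1066, 1115 and 1084 CPM in vhl-1 and 28.9, 22.7 and 21 CPM in N2. For rips-1 the log2 fold change was 1.14 ± 0.11 (edgeR adjusted p = 1.17e-07), with every rhy-1 library above every vhl-1 library, and both mutants were called higher than N2. This was a smaller step than the 5.49 by which vhl-1 exceeded N2. The cysteine dioxygenase gene cdo-1 (chromosome X, 862267 to 863578, minus strand), whose product starts cysteine breakdown, had 85.0, 99.98 and 102 CPM in rhy-1, against 10.5, 17 and 12.1 CPM in vhl-1 and 9.61, 10.7 and 11.6 CPM in N2. Between the mutants cdo-1 differed by 2.86 ± 0.18 (edgeR adjusted p = 1.01e-09), without overlap, and rhy-1 was called higher than N2 while vhl-1 was not called against it. The log2 fold change of cdo-1 in vhl-1 over N2 was 0.31 ± 0.19 (edgeR adjusted p = 0.32232), and cdo-1 averaged 95.2 CPM in egl-9, 109 CPM in egl-9;vhl-1, 11.17 CPM in hif-1 and 9.68 CPM in egl-9 hif-1. The acyltransferase-family gene oac-54 (chromosome II, 9158111 to 9159984, plus strand), a neighbour of rhy-1 on chromosome II, had 41.0, 36.6 and 34.8 CPM in rhy-1, against 21, 15.9 and 17.8 CPM in vhl-1 and 1.34, 1.41 and 0.241 CPM in N2. In oac-54 the mutants differed by 1.04 ± 0.19 (edgeR adjusted p = 0.000762), with no overlap between the mutants, and both mutants were called higher than N2. Calls lost under another setting were those of oac-54 with transcripts tested one by one.

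**Figure D2:**
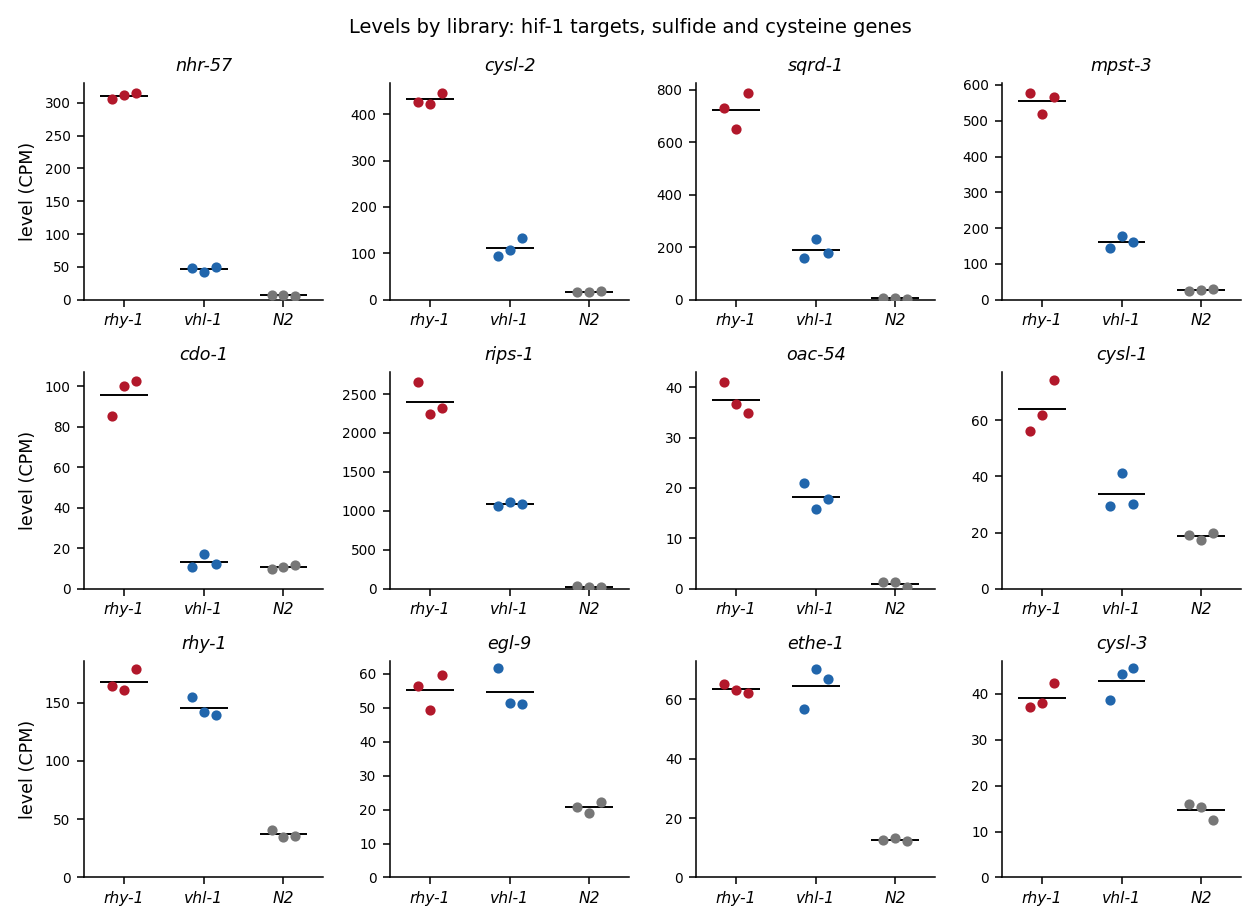
Level in CPM of 12 HIF-1 pathway and target genes in each library of rhy-1, vhl-1 and N2 (points, left to right), with bars at the group means and an axis of its own from 0 in each panel. The rhy-1 points lie above the vhl-1 points for nhr-57, cysl-2, sqrd-1, mpst-3, cdo-1, rips-1, oac-54 and cysl-1, while for egl-9, ethe-1 and cysl-3 the mutants overlap above N2.

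Of 21 tested genes handling hydrogen sulfide and cysteine, the amino acid it is made from, 8 were higher in rhy-1 and none lower. The share called was 38.1%, beside 14.2% of all genes (median log2 fold change 0.34). Against N2, 11 were higher and 3 lower in rhy-1 (median 0.58), and 7 were higher and 2 lower in vhl-1 (median -0.11). Among the 8 are cysl-1, cysl-2, sqrd-1 and cdo-1, given above. The sulfurtransferase gene mpst-3 (chromosome V, 14895647 to 14899019, plus strand) had 578, 518 and 568 CPM in rhy-1, against 146, 179 and 162 CPM in vhl-1 and 25.4, 26.6 and 29.3 CPM in N2. The mpst-3 difference was 1.77 ± 0.10 (edgeR adjusted p = 2.6e-11), with every rhy-1 library above every vhl-1 library, and both mutants were called higher than N2. The sulfurtransferase gene mpst-6 is listed under 2 identifiers with equal split counts, so its 2 calls are 1 measurement and its own level is uncertain. Each identifier had 54.9, 71.3 and 75.2 CPM in rhy-1, against 24.3, 33.3 and 25 CPM in vhl-1 and 21.5, 28 and 39.8 CPM in N2. For mpst-6 the log2 fold change was 1.29 ± 0.23 (edgeR adjusted p = 0.0011109), without overlap, and rhy-1 was called higher than N2 while vhl-1 was not called against it. The cystathionine gamma-lyase gene cth-1, for an enzyme that makes cysteine, had 129, 85.3 and 94.1 CPM in rhy-1, against 30.3, 37.5 and 28.5 CPM in vhl-1 and 63.5, 43.5 and 104.01 CPM in N2. Between the mutants cth-1 differed by 1.68 ± 0.29 (edgeR adjusted p = 0.000841), with no overlap between the mutants, and vhl-1 was called lower than N2 while rhy-1 was not called against it. The call was also lost for cth-1 with the L4 molt level as a covariate or transcripts tested one by one.

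Of the 13 sulfide list members not called between the mutants, ethe-1, cysl-3 and mpst-2 were called higher than N2 in both. The others were gcs-1, gss-1, suox-1, mpst-1, mpst-4, mpst-7, cbs-1, cbs-2, cysl-4 and cth-2, and include the 3 lower than N2 in rhy-1. The persulfide dioxygenase gene ethe-1, for the step after sqrd-1, had 65.2, 63.2 and 62.2 CPM in rhy-1, against 56.9, 70.1 and 66.9 CPM in vhl-1 and 12.5, 13.4 and 12.4 CPM in N2. In ethe-1 the mutants differed by -0.02 ± 0.10 (edgeR adjusted p = 0.9016), with overlapping libraries. The cysteine synthase-like gene cysl-3 had 37.1, 38 and 42.3 CPM in rhy-1, against 38.7, 44.4 and 45.5 CPM in vhl-1 and 16.0, 15.4 and 12.4 CPM in N2. The cysl-3 difference was -0.13 ± 0.13 (edgeR adjusted p = 0.55452), with overlapping libraries. The low gene mpst-2 had 1.59, 2.5 and 2.31 CPM in rhy-1, against 0.438, 1.46 and 0.576 CPM in vhl-1 and 0.103, 0 and 0 CPM in N2. For mpst-2 the log2 fold change was 1.36 ± 0.52 (edgeR adjusted p = 0.088321), with no overlap between the mutants.

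The 5 remaining called targets were lower in rhy-1 than in vhl-1. The gene smf-3 (chromosome IV, 2618869 to 2625503, plus strand), for an importer of divalent metals including iron, had 2.78, 2.5 and 3.16 CPM in rhy-1, against 38.7, 50.5 and 32.1 CPM in vhl-1 and 1.96, 1.88 and 2.05 CPM in N2. Between the mutants smf-3 differed by -3.84 ± 0.33 (edgeR adjusted p = 8.62e-08), with every rhy-1 library below every vhl-1 library, and vhl-1 was called higher than N2 while rhy-1 was not called against it. Against N2, smf-3 stood at 0.51 ± 0.39 (edgeR adjusted p = 0.36356) in rhy-1 and 4.35 ± 0.34 (edgeR adjusted p = 4.47e-08) in vhl-1. It averaged 0 CPM in egl-9, 0.148 CPM in egl-9;vhl-1, 0.248 CPM in hif-1 and 0.0710 CPM in egl-9 hif-1. The flavin monooxygenase gene fmo-2 had 7.55, 4.40 and 7.78 CPM in rhy-1, against 10.8, 37.1 and 15.7 CPM in vhl-1 and 0.310, 0.235 and 0.483 CPM in N2. In fmo-2 the mutants differed by -1.69 ± 0.39 (edgeR adjusted p = 0.0087253), without overlap, and both mutants were called higher than N2. The collagen prolyl hydroxylase gene phy-2 had 34.3, 33.3 and 30.4 CPM in rhy-1, against 47.8, 80.0 and 48.1 CPM in vhl-1 and 14.5, 12.8 and 13.3 CPM in N2. The phy-2 difference was -0.84 ± 0.21 (edgeR adjusted p = 0.011736), with no overlap between the mutants, and both mutants were called higher than N2. The gene F22B5.4 had 14.3, 17.1 and 18.7 CPM in rhy-1, against 24.3, 25.2 and 26.5 CPM in vhl-1 and 5.68, 7.65 and 11.9 CPM in N2. For F22B5.4 the log2 fold change was -0.60 ± 0.17 (edgeR adjusted p = 0.018677), with every rhy-1 library below every vhl-1 library, and both mutants were called higher than N2. The carbonic anhydrase gene cah-4 had 38, 39.3 and 42.2 CPM in rhy-1, against 128, 39.6 and 143 CPM in vhl-1 and 76.2, 100.3 and 122 CPM in N2. Between the mutants cah-4 differed by -1.38 ± 0.32 (edgeR adjusted p = 0.0097363), with overlapping libraries, and rhy-1 was called lower than N2 while vhl-1 was not called against it. Calls that ended with a left-out library were those of F22B5.4 without rhy-1 replicate 1, and of F22B5.4 and cah-4 without vhl-1 replicate 3. Another setting ended the call of F22B5.4 and cah-4 with the L4 molt level as a covariate, of cah-4, fmo-2 and phy-2 with only these 6 libraries fitted, and of F22B5.4 and fmo-2 with transcripts tested one by one.

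Among iron and heme genes, a list that holds smf-3 and the ferritins, 2 of 14 tested members were higher in rhy-1 and 6 lower. The share called was 57.1%, beside 14.2% of all genes (median log2 fold change -0.51). Against N2, 2 were higher and 4 lower in rhy-1 (median -0.52), and 3 were higher and 2 lower in vhl-1 (median 0.04). The members higher in rhy-1 were the ferritin genes, which encode the iron store. The gene ftn-1 (chromosome V, 7546468 to 7547579, minus strand) had 4.27, 6.0 and 3.05 CPM in rhy-1, against 0.438, 0.224 and 0.345 CPM in vhl-1 and 3.93, 1.18 and 2.90 CPM in N2. In ftn-1 the mutants differed by 3.67 ± 0.53 (edgeR adjusted p = 0.000132), with no overlap between the mutants, and vhl-1 was called lower than N2 while rhy-1 was not called against it. The gene ftn-2 had 591, 563 and 502.2 CPM in rhy-1, against 308, 273 and 375 CPM in vhl-1 and 589, 455 and 493 CPM in N2. The ftn-2 difference was 0.79 ± 0.10 (edgeR adjusted p = 1.06e-05), with every rhy-1 library above every vhl-1 library, and vhl-1 was called lower than N2 while rhy-1 was not called against it. In other genotypes ftn-1 averaged 266 CPM in egl-9, 199 CPM in egl-9;vhl-1, 91.0 CPM in hif-1 and 68.1 CPM in egl-9 hif-1. Iron exporter genes of the ferroportin family were lower in rhy-1. The gene fpn-1.2 had 7.35, 7.3 and 7.47 CPM in rhy-1, against 25.4, 21.3 and 13.8 CPM in vhl-1 and 23.4, 13.9 and 16.9 CPM in N2. For fpn-1.2 the log2 fold change was -1.45 ± 0.26 (edgeR adjusted p = 0.000545), without overlap, and rhy-1 was called lower than N2 while vhl-1 was not called against it. The gene fpn-1.1 had 12.6, 11 and 14.3 CPM in rhy-1, against 24.4, 18.8 and 25 CPM in vhl-1 and 23.4, 26.6 and 23.9 CPM in N2. Between the mutants fpn-1.1 differed by -0.85 ± 0.18 (edgeR adjusted p = 0.0027146), with no overlap between the mutants, and rhy-1 was called lower than N2 while vhl-1 was not called against it.

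The aconitase gene aco-1, for the cytosolic member of an iron-binding enzyme family, had 196, 188 and 195 CPM in rhy-1, against 258, 287 and 262 CPM in vhl-1 and 289, 310.3 and 337 CPM in N2. In aco-1 the mutants differed by -0.48 ± 0.09 (edgeR adjusted p = 0.000475), with every rhy-1 library below every vhl-1 library, and rhy-1 was called lower than N2 while vhl-1 was not called against it. The heme-responsive genes hrg-2 and hrg-7 had log2 fold changes of -2.14 ± 0.43 (edgeR adjusted p = 0.001263) and -1.12 ± 0.23 (edgeR adjusted p = 0.0030699). The genes hrg-1 (-0.54), hrg-4 (-1.14), hrg-6 (-0.22), hrg-9 (0.35), smf-1 (0.43) and mrp-5 (-0.06), for heme and metal transport, were not called. Other settings ended the call of fpn-1.1 and hrg-7 with the L4 molt level as a covariate.

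**Figure D3:**
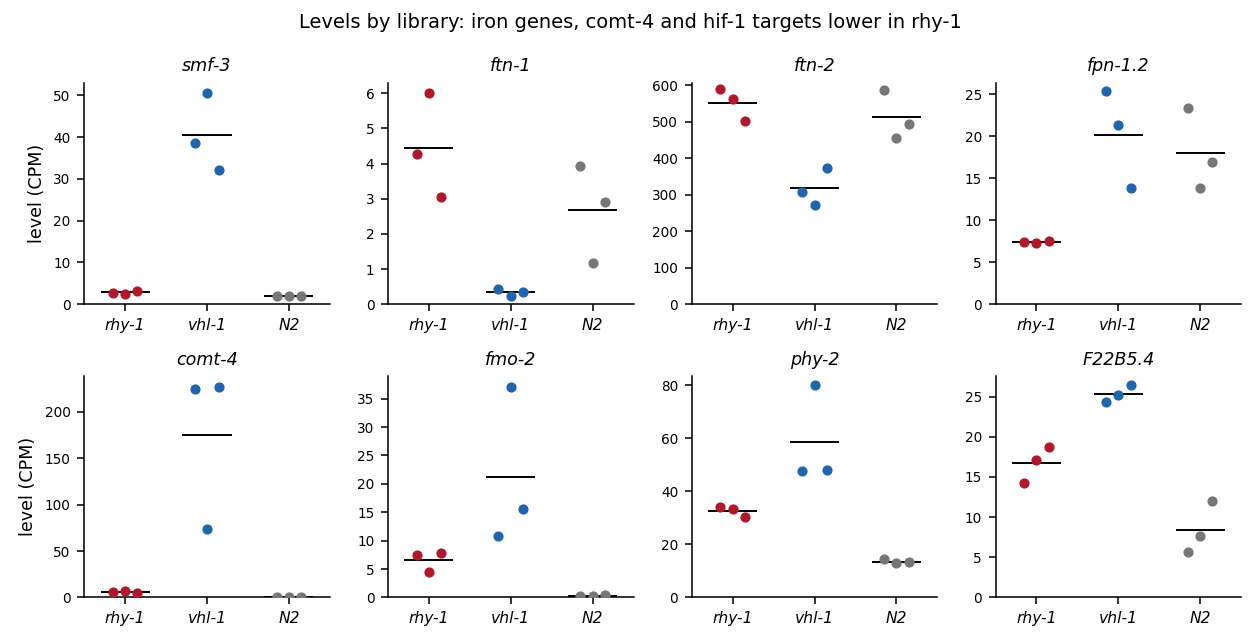
Level in CPM of smf-3, ftn-1, ftn-2, fpn-1.2, comt-4, fmo-2, phy-2 and F22B5.4 in each library of rhy-1, vhl-1 and N2 (points, left to right), with bars at the group means and an axis from 0 in each panel. For smf-3 the vhl-1 points at 32.1 to 50.5 CPM stand apart from rhy-1 and N2, and for ftn-1 and ftn-2 the vhl-1 points lie below both.

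In the comt and rips families of methyltransferases rips-1 was higher in rhy-1, as given above, and the 3 comt genes tested were lower (median of the 4 members -2.18). The catechol-O-methyltransferase family gene comt-4 (chromosome V, 2049217 to 2050185, minus strand) had 5.86, 7.0 and 4.31 CPM in rhy-1, against 225, 74.3 and 227 CPM in vhl-1 and 0.517, 0.353 and 0.241 CPM in N2. The comt-4 difference was -4.93 ± 0.36 (edgeR adjusted p = 8.62e-08), without overlap, and both mutants were called higher than N2. The gene comt-5 had 0.199, 0.10 and 0.210 CPM in rhy-1, against 2.19, 1.46 and 2.3 CPM in vhl-1 and 1.03, 2.12 and 1.33 CPM in N2. For comt-5 the log2 fold change was -3.45 ± 0.61 (edgeR adjusted p = 0.000403), with no overlap between the mutants, and rhy-1 was called lower than N2 while vhl-1 was not called against it. The gene comt-3 had 4.67, 5.0 and 6.42 CPM in rhy-1, against 14.1, 8.51 and 7.60 CPM in vhl-1 and 11.6, 12.7 and 18 CPM in N2. Between the mutants comt-3 differed by -0.91 ± 0.24 (edgeR adjusted p = 0.011216), with every rhy-1 library below every vhl-1 library, and rhy-1 was called lower than N2 while vhl-1 was not called against it. Of 5 tested flavin monooxygenase genes 1 was higher, fmo-3, and 1 lower, fmo-2 (40% called, median 0.27). The gene fmo-3 had 57.5, 48.6 and 50.5 CPM in rhy-1, against 11.8, 15.1 and 9.21 CPM in vhl-1 and 14.3, 11.3 and 13 CPM in N2. In fmo-3 the mutants differed by 2.11 ± 0.16 (edgeR adjusted p = 3.01e-09), without overlap, and rhy-1 was called higher than N2 while vhl-1 was not called against it. The call was lost for comt-3 without rhy-1 replicate 1 or vhl-1 replicate 1. Under other settings the call was lost for comt-3 with the L4 molt level as a covariate.

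Of 8 tested kynurenine pathway genes, which break down tryptophan, 2 were higher and 2 lower (50% called, median -0.07). The kynurenine aminotransferase gene nkat-3 was nearly absent from the vhl-1 libraries. It had 21.6, 20.5 and 25.7 CPM in rhy-1, against 0.110, 0 and 0 CPM in vhl-1 and 25, 29.9 and 27.1 CPM in N2. This was 666 estimated counts over the rhy-1 libraries against 1 over the vhl-1 libraries, a ratio of 602-fold (95% counting interval 108 to 23819.9), with an edgeR adjusted p of 5.69e-14. Here and below such intervals cover counting error only. The gene was also near 0 in egl-9;vhl-1, at a mean of 0.0458 CPM, so it was low in both strains that carry the vhl-1 allele. Its means in the other 5 genotypes lay between 22.4 and 32.1 CPM. The genes afmd-1 (0.80), kmo-1 (-0.60) and haao-1 (-0.54), for further steps of the pathway, were called with smaller differences. Leaving out single libraries ended the call of kmo-1 without rhy-1 replicate 2 or vhl-1 replicate 3, of afmd-1 and haao-1 without rhy-1 replicate 3, of afmd-1 without vhl-1 replicate 1, and of haao-1 without vhl-1 replicate 2. Calls lost under another setting were those of kmo-1 with the L4 molt level as a covariate, and of afmd-1 and kmo-1 with transcripts tested one by one. The gene F08G12.1 (chromosome X, 11302015 to 11305873, minus strand), picked out after its values were seen, lies beside vhl-1 and showed the same order. It had 9.54, 8.70 and 8.84 CPM in rhy-1, against 1.21, 0.224 and 0.576 CPM in vhl-1 and 10.13, 13.4 and 11.3 CPM in N2, a log2 fold change of 3.72, edgeR adjusted p = 1.17e-08. It averaged 0.424 CPM in egl-9;vhl-1 and 7.91 CPM in egl-9. Of 211 other tested genes within 1 Mb of vhl-1, 30 were higher and 9 lower in rhy-1 (18.5% called), and of 371 within 1 Mb of rhy-1, 34 were higher and 18 lower (14%).

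Differences of at least 8-fold by the fitted change were found in 144 genes higher and 35 lower in rhy-1. In 38 of the 144 and 7 of the 35 the lower mutant had 3 or fewer counts in all, so their size is given only as a bound or a ratio of counts. The fatty acid and retinol binding protein gene far-3 (chromosome V, 12996787 to 12997522, minus strand) had 607, 672 and 735 CPM in rhy-1, against 2.96, 9.74 and 4.14 CPM in vhl-1 and 13.6, 11.3 and 7.48 CPM in N2. The far-3 difference was 6.90 ± 0.36 (edgeR adjusted p = 1.88e-09), and only rhy-1 was called against N2, as higher. In other genotypes far-3 averaged 882 CPM in egl-9, 1052 CPM in egl-9;vhl-1, 9.43 CPM in hif-1 and 8.54 CPM in egl-9 hif-1. The lysozyme gene lys-10 had 11.5, 21.9 and 12.1 CPM in rhy-1, against 0.110, 0 and 0 CPM in vhl-1 and 0.517, 0.353 and 0.483 CPM in N2, a ratio of counts of 407-fold (95% counting interval 72.7 to 16106). In egl-9 libraries it averaged 0.980 CPM. The acyltransferase-family gene oac-14 had 46.7, 27 and 27.7 CPM in rhy-1, against 0.438, 0.672 and 0 CPM in vhl-1 and 3.41, 0.942 and 1.09 CPM in N2. For oac-14 the log2 fold change was 6.45 ± 0.70 (edgeR adjusted p = 7.7e-06), and only rhy-1 was called against N2, as higher. K06H6.2 had 3.68, 20.3 and 8.73 CPM in rhy-1 and no count in vhl-1, at least 97.3-fold higher in rhy-1.

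The larger differences also included gpdh-1 and hmit-1.1, both known from the response to osmotic stress. The glycerol-3-phosphate dehydrogenase gene gpdh-1 had 65.8, 102 and 112 CPM in rhy-1, against 0.986, 9.30 and 1.151 CPM in vhl-1 and 11.5, 12.8 and 12.9 CPM in N2. Between the mutants gpdh-1 differed by 4.6 ± 0.61 (edgeR adjusted p = 9.77e-05), and only rhy-1 was called against N2, as higher. The myo-inositol transporter gene hmit-1.1 had 52.9, 66.6 and 81.1 CPM in rhy-1, against 4.93, 3.25 and 0.691 CPM in vhl-1 and 1.45, 1.88 and 5.67 CPM in N2. In hmit-1.1 the mutants differed by 4.48 ± 0.57 (edgeR adjusted p = 6.27e-05), and only rhy-1 was called against N2, as higher. The phosphoglycolate phosphatase-like gene pgph-3 had 213, 324 and 299 CPM in rhy-1, against 7.78, 9.18 and 2.42 CPM in vhl-1 and 60.4, 34.7 and 42.4 CPM in N2. The pgph-3 difference was 5.42 ± 0.57 (edgeR adjusted p = 1.07e-05), and rhy-1 was called higher and vhl-1 lower than N2. The peptide gene fipr-22 had 6.65, 13.3 and 12.6 CPM in rhy-1, against 0.110, 0.224 and 0 CPM in vhl-1 and 0.207, 0.118 and 0.121 CPM in N2, a ratio of counts of 96.4-fold (95% counting interval 32.7 to 470.1). The gene gmap-3 had 30.6, 19.0 and 28.7 CPM in rhy-1, against 1.42, 1.12 and 1.38 CPM in vhl-1. For gmap-3 the log2 fold change was 4.3 ± 0.76 (edgeR adjusted p = 0.0012356), and only rhy-1 was called against N2, as higher. The call was also lost for K06H6.2 with only these 6 libraries fitted.

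Among the genes lower in rhy-1, F15E11.10 (chromosome V, 2345676 to 2348123, plus strand) had no count in rhy-1 or N2 and 19.0, 22.3 and 26.9 CPM in vhl-1. With 606 counts in vhl-1, it was at least 223-fold lower in rhy-1. Its neighbour irld-35 (chromosome V, 2348215 to 2350325, minus strand), a receptor L-domain gene on the opposite strand, had 0.497, 0.300 and 0.526 CPM in rhy-1, against 40.1, 40.2 and 66.3 CPM in vhl-1 and 1.03, 0 and 0.241 CPM in N2. Between the mutants irld-35 differed by -6.75 ± 0.53 (edgeR adjusted p = 5.29e-08), and only vhl-1 was called against N2, as higher. The libraries carry no strand, so reads of such neighbours cannot be told apart where their transcripts overlap. The C-type lectin gene clec-209, listed under 2 identifiers with equal split counts and therefore uncertain, had 45.9, 57.4 and 79.7 CPM in rhy-1, against 1774, 659.6 and 1958 CPM in vhl-1 and 322, 293 and 337 CPM in N2 for the one at chromosome V, 2459637 to 2460893, plus strand. In clec-209 the mutants differed by -4.59 ± 0.35 (edgeR adjusted p = 2.66e-07), and rhy-1 was called lower and vhl-1 higher than N2. The aspartyl protease gene asp-12 had 13.3, 13.7 and 15.8 CPM in rhy-1, against 366, 185 and 115.1 CPM in vhl-1 and 7.96, 10.003 and 4.46 CPM in N2. The asp-12 difference was -3.96 ± 0.36 (edgeR adjusted p = 2e-06), and only vhl-1 was called against N2, as higher. The lectin gene clec-210 had 19.8, 17.4 and 17.4 CPM in rhy-1, against 152, 287 and 232 CPM in vhl-1 and 6.72, 3.53 and 2.53 CPM in N2. For clec-210 the log2 fold change was -3.62 ± 0.32 (edgeR adjusted p = 1.1e-06), and both mutants were called higher than N2.

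The ABC transporter gene haf-6 had 11.6, 12.4 and 12.4 CPM in rhy-1, against 83.4, 87 and 83.9 CPM in vhl-1 and 93.1, 72.8 and 87.8 CPM in N2. Between the mutants haf-6 differed by -2.80 ± 0.13 (edgeR adjusted p = 6.48e-13), and only rhy-1 was called against N2, as lower. It was also low in hif-1 (13.3 CPM) and egl-9 hif-1 (13.7 CPM), and averaged 73.4 CPM in egl-9. The gene bcf-1 had 505.97, 449.8 and 418 CPM in rhy-1, against 3335, 3041 and 2482 CPM in vhl-1 and 2929, 2333 and 2717 CPM in N2. In bcf-1 the mutants differed by -2.69 ± 0.14 (edgeR adjusted p = 9.43e-12), and only rhy-1 was called against N2, as lower. The glucocerebrosidase gene gba-2 had 3.18, 2.0 and 2.63 CPM in rhy-1, against 14, 35.3 and 28.1 CPM in vhl-1 and 3.20, 3.53 and 1.93 CPM in N2. The gba-2 difference was -3.30 ± 0.29 (edgeR adjusted p = 3.24e-08), and only vhl-1 was called against N2, as higher. The mucin-like gene mul-1 had 1.09, 1.8 and 2.0 CPM in rhy-1, against 12.2, 12.4 and 10.9 CPM in vhl-1 and 0.827, 1.06 and 2.05 CPM in N2. For mul-1 the log2 fold change was -2.85 ± 0.25 (edgeR adjusted p = 2.49e-08), and only vhl-1 was called against N2, as higher. The endoribonuclease gene endu-2 had 69.0, 61.6 and 76.3 CPM in rhy-1, against 286, 347 and 297 CPM in vhl-1 and 44.8, 46.7 and 65.2 CPM in N2. Between the mutants endu-2 differed by -2.17 ± 0.13 (edgeR adjusted p = 2.33e-10), and both mutants were called higher than N2. The gene math-45 had a log2 fold change of -2.60, edgeR adjusted p = 1.05e-05.

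Called genes were unevenly spread over the chromosomes. Of 2465 tested genes on chromosome V, 315 were higher and 170 lower (19.7% called), and of 1741 on chromosome X, 208 were higher and 83 lower (16.7%), against 9.67% of 2181 on chromosome I. Chromosome V held 61 of the 144 genes at least 8-fold higher and 19 of the 35 at least 8-fold lower. Some of these lay in runs, which were picked out after their values were seen. From comt-4 to T20D4.3 (chromosome V, 2049217 to 3422779) 127 genes were tested, 14 of them higher and 31 lower. In this run 11 genes were at least 8-fold lower, and it holds comt-4, F15E11.10, irld-35, clec-209 and clec-210. From F45D11.14 to F45D11.1.1 (chromosome II, 1004616 to 1023528) all 7 tested genes were lower and at least 8-fold so, but several are near-identical copies with equal split counts and count as fewer measurements. From C14C6.3 to F48G7.8 (chromosome V, 543469 to 627685) 6 of 9 tested genes were at least 8-fold higher, and from idpc-6 to idpc-3 (chromosome V, 9620150 to 9629214) 4 of 4.

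Lists of the methionine cycle, glycolysis, TCA cycle and respiratory chain had 2.78 to 31.6% of members called, beside 14.2% of all tested genes. Of 19 tested genes of the methionine cycle and propionate breakdown, 3 were higher and 3 lower (31.6% called, median 0.12). The S-adenosylhomocysteine hydrolase gene ahcy-1 had 1029, 980.0 and 1176 CPM in rhy-1, against 1662, 1520.2 and 1408 CPM in vhl-1. In ahcy-1 the mutants differed by -0.53 ± 0.10 (edgeR adjusted p = 0.0010078), with no overlap between the mutants, and both mutants were called lower than N2. In the same list sams-1 (0.48), mthf-1 (0.47) and pccb-1 (0.38) were higher and alh-8 (-0.44) and hach-1 (-0.51), of the propionate shunt, lower. Of 28 tested genes of glycolysis and sugar storage 2 were higher and 1 lower (10.7% called, median -0.08). The gluconeogenic gene pck-1 had 544, 523 and 583 CPM in rhy-1, against 361, 399 and 373 CPM in vhl-1 and 77.6, 84.6 and 75.3 CPM in N2. The pck-1 difference was 0.54 ± 0.08 (edgeR adjusted p = 2.07e-05), with every rhy-1 library above every vhl-1 library, and both mutants were called higher than N2. The trehalose synthesis gene tps-1 had 33.4, 33.5 and 35.3 CPM in rhy-1, against 17.3, 20.2 and 16.3 CPM in vhl-1. For tps-1 the log2 fold change was 0.92 ± 0.13 (edgeR adjusted p = 2.28e-05), without overlap, and rhy-1 was called higher than N2 while vhl-1 was not called against it. Of 25 tested TCA cycle genes 5 were lower and none higher (20% called, median -0.12), namely idh-1 (-0.38), sucl-2 (-0.35), dld-1 (-0.25), fum-1 (-0.23) and cts-1 (-0.27). These 5 moved to 1 without rhy-1 replicate 1 or 2, to 3, 2 and 2 without vhl-1 replicates 1, 2 and 3, to 0 with the L4 molt covariate, and to 2 by single transcripts. The 36 tested genes of the respiratory chain and ATP synthase held 1 lower gene, cox-6A (-0.31, edgeR adjusted p = 0.0070085), and no higher one (2.78% called, median -0.10). This 1 moved to 2 without rhy-1 replicate 3, to 2 and 4 without egl-9 hif-1 replicates 1 and 3, to 2 without hif-1 replicate 2, to 3 with RLE size factors or with no expression filter, to 5 with the filter at 30 counts or with DESeq2, to 2 with only these 6 libraries fitted or by single transcripts, and to 0 with the L4 molt covariate. The 1 lower gene of glycolysis and sugar storage moved to 0 without rhy-1 replicate 1 or 2, to 0 without vhl-1 replicate 2 or 3, to 2 without egl-9 hif-1 replicate 3, to 2 with RLE size factors or with DESeq2, to 4 with the filter at 30 counts, to 0 with the L4 molt covariate, and to 5 by single transcripts. A left-out library ended the call of cts-1, dld-1, fum-1, sams-1 and sucl-2 without rhy-1 replicate 1, of cts-1, dld-1, fum-1 and idh-1 without rhy-1 replicate 2, of sams-1 without rhy-1 replicate 3, of fum-1, pccb-1, sams-1 and sucl-2 without vhl-1 replicate 1, of cts-1, dld-1 and fum-1 without vhl-1 replicate 2, and of cts-1, dld-1, pccb-1 and sucl-2 without vhl-1 replicate 3. Under other settings the call was lost for fum-1, hach-1, idh-1, mthf-1, pck-1, sams-1 and sucl-2 with transcripts tested one by one, for cox-6A, cts-1, dld-1, fum-1, idh-1, mthf-1, pccb-1, sams-1 and sucl-2 with the L4 molt level as a covariate, and for dld-1 and pccb-1 with only these 6 libraries fitted.

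In lipid metabolism, 16 tested desaturase and elongase genes held 4 lower and no higher members (25% called, median -0.13). The 4 moved to 2 without rhy-1 replicate 1 or 2, to 2 without vhl-1 replicate 3, and to 1 with the L4 molt covariate. The elongase gene elo-2 had 81.4, 68.6 and 67.4 CPM in rhy-1, against 122, 149 and 103 CPM in vhl-1. Between the mutants elo-2 differed by -0.78 ± 0.15 (edgeR adjusted p = 0.0012644), with no overlap between the mutants, and rhy-1 was called lower than N2 while vhl-1 was not called against it. The desaturase gene fat-4 had 116, 118 and 134 CPM in rhy-1, against 173, 153 and 168 CPM in vhl-1. In fat-4 the mutants differed by -0.43 ± 0.08 (edgeR adjusted p = 0.000876), with every rhy-1 library below every vhl-1 library, and rhy-1 was called lower than N2 while vhl-1 was not called against it. Of 62 tested genes of beta-oxidation and fatty acid activation 4 were higher and 5 lower (14.5% called, median 0.03), beside 14.2% of all tested genes. The 4 higher ones moved to 7 without vhl-1 replicate 2, to 2 with the L4 molt covariate, and to 1 by single transcripts. The 5 lower ones moved to 2 without rhy-1 replicate 1 or 2, to 3 and 2 without vhl-1 replicates 1 and 2, and to 3 with the L4 molt covariate or by single transcripts. The peroxisomal acyl-CoA oxidase gene acox-1.1 had 35.9, 28.8 and 38.7 CPM in rhy-1, against 53.7, 58.2 and 53.5 CPM in vhl-1. The acox-1.1 difference was -0.68 ± 0.11 (edgeR adjusted p = 0.000167), without overlap, and rhy-1 was called lower than N2 while vhl-1 was not called against it. The acyl-CoA synthetase gene acs-1 had 438, 385 and 349 CPM in rhy-1, against 239, 283 and 239 CPM in vhl-1 and 539, 372 and 435 CPM in N2. For acs-1 the log2 fold change was 0.62 ± 0.15 (edgeR adjusted p = 0.0087592), with no overlap between the mutants, and vhl-1 was called lower than N2 while rhy-1 was not called against it. Among 22 tested lipase and fatty acid binding protein genes, far-3 and lbp-7 were higher and lbp-1 lower (13.6% called, median 0.00). The gene lbp-1 had 57.8, 59.1 and 58.5 CPM in rhy-1, against 106, 96.2 and 90.5 CPM in vhl-1 and 57.7, 58.1 and 59.8 CPM in N2. Between the mutants lbp-1 differed by -0.74 ± 0.09 (edgeR adjusted p = 5.26e-06), with every rhy-1 library below every vhl-1 library, and vhl-1 was called higher than N2 while rhy-1 was not called against it. The 1 lower lipase or binding protein gene moved to 2 without vhl-1 replicate 1, to 2 and 3 without egl-9 hif-1 replicates 2 and 3, to 2 with no expression filter, with DESeq2 or by single transcripts, and to 3 with the filter at 30 counts or with only these 6 libraries fitted. Calls lost under another setting were those of acs-1, fat-4 and lbp-7 with the L4 molt level as a covariate.

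The 5 tested pud genes, named for proteins raised in daf-2 mutants, held no call between the mutants (median -1.17), and all 5 were lower than N2 in each mutant, with medians of -3.48 in rhy-1 and -2.03 in vhl-1. Of 29 tested short-chain dehydrogenase genes 3 were higher and 4 lower (24.1% called, median -0.05), with dhs-8 (1.60, edgeR adjusted p = 0.000247) and dhs-5 (1.12, edgeR adjusted p = 0.000201) higher and dhs-23 (-1.34, edgeR adjusted p = 9.92e-05) lower. The 4 lower dehydrogenase genes moved to 2 without rhy-1 replicate 1, and to 2 with the L4 molt covariate. The call was also lost for dhs-23 and dhs-8 with transcripts tested one by one.

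Detoxification families differed in direction. Of 52 tested cytochrome P450 genes, 12 were higher and 6 lower (34.6% called, median 0.11), and of 60 tested UDP-glucuronosyltransferase genes, 21 were higher and 8 lower (48.3% called, median 0.21), beside 8.41% higher and 5.79% lower of all genes. The 36 tested glutathione S-transferase genes held 9 lower and no higher members (25% called, median -0.25). The 12 higher P450 genes moved to 6 by single transcripts. The 6 lower P450 genes moved to 2 with the L4 molt covariate. Among the glucuronosyltransferases the 21 higher genes moved to 12 with the L4 molt covariate, and to 13 by single transcripts. The 8 lower ones moved to 5 without rhy-1 replicate 2 or 3, to 5 without vhl-1 replicate 1 or 3, to 3 with the L4 molt covariate, and to 4 by single transcripts. The 9 lower glutathione S-transferases moved to 5 with only these 6 libraries fitted or by single transcripts. The P450 gene cyp-36A1, known to act downstream of EGL-9 and HIF-1, had 67.4, 66.3 and 75.2 CPM in rhy-1, against 7.56, 8.29 and 10.5 CPM in vhl-1 and 6.72, 6.36 and 6.52 CPM in N2. In cyp-36A1 the mutants differed by 2.99 ± 0.16 (edgeR adjusted p = 8.38e-12), without overlap, and rhy-1 was called higher than N2 while vhl-1 was not called against it. In other genotypes cyp-36A1 averaged 40.5 CPM in egl-9, 51.6 CPM in egl-9;vhl-1, 18.4 CPM in hif-1 and 4.93 CPM in egl-9 hif-1. The gene cyp-32A1 had 8.54, 9.0 and 9.36 CPM in rhy-1, against 1.42, 2.80 and 1.73 CPM in vhl-1 and 1.76, 1.65 and 2.17 CPM in N2. The cyp-32A1 difference was 2.17 ± 0.25 (edgeR adjusted p = 2e-06), with no overlap between the mutants, and rhy-1 was called higher than N2 while vhl-1 was not called against it. For cyp-13B1 the log2 fold change was 2.34 ± 0.29 (edgeR adjusted p = 5.19e-06), with every rhy-1 library above every vhl-1 library, and rhy-1 was called higher than N2 while vhl-1 was not called against it. The gene cyp-35C1 had 52.1, 44.2 and 25.6 CPM in rhy-1, against 123, 131.2 and 211 CPM in vhl-1 and 217, 146 and 151 CPM in N2. Between the mutants cyp-35C1 differed by -1.93 ± 0.27 (edgeR adjusted p = 0.000138), without overlap, and rhy-1 was called lower than N2 while vhl-1 was not called against it. The related gene cyp-35A3 was lower too (-1.35). Another setting ended the call of cyp-13B1 with transcripts tested one by one, and of cyp-35A3 with the L4 molt level as a covariate.

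Several transferase genes were lower in vhl-1 than in both other strains. The gene ugt-64 had 71.9, 80.0 and 72.8 CPM in rhy-1, against 25.5, 24.9 and 25 CPM in vhl-1 and 75.8, 75.7 and 80.6 CPM in N2. In ugt-64 the mutants differed by 1.58 ± 0.08 (edgeR adjusted p = 1.58e-12), with no overlap between the mutants, and vhl-1 was called lower than N2 while rhy-1 was not called against it. The gene ugt-63 had 116, 96.0 and 130.7 CPM in rhy-1, against 9.53, 21.4 and 18 CPM in vhl-1 and 68.1, 87.2 and 106 CPM in N2. The ugt-63 difference was 2.81 ± 0.26 (edgeR adjusted p = 1.47e-06), with every rhy-1 library above every vhl-1 library, and vhl-1 was called lower than N2 while rhy-1 was not called against it. The gene ugt-41 had 289, 249.7 and 292 CPM in rhy-1, against 25.2, 46.4 and 31.8 CPM in vhl-1 and 127, 90.9 and 85.9 CPM in N2. For ugt-41 the log2 fold change was 3.01 ± 0.20 (edgeR adjusted p = 1.69e-08), without overlap, and rhy-1 was called higher and vhl-1 lower than N2. The reverse order was seen in ugt-65 and ugt-18, which were lower in rhy-1. The gene ugt-65 had 10.13, 7.50 and 9.15 CPM in rhy-1, against 49.2, 57 and 50.3 CPM in vhl-1 and 12.9, 5.77 and 6.39 CPM in N2. Between the mutants ugt-65 differed by -2.55 ± 0.26 (edgeR adjusted p = 2.58e-06), with no overlap between the mutants, and vhl-1 was called higher than N2 while rhy-1 was not called against it. The gene ugt-18 had 1.39, 1.3 and 1.16 CPM in rhy-1, against 14, 7.28 and 5.99 CPM in vhl-1 and 0, 0 and 0.362 CPM in N2. In ugt-18 the mutants differed by -2.81 ± 0.53 (edgeR adjusted p = 0.0012451), with every rhy-1 library below every vhl-1 library, and both mutants were called higher than N2. The glutathione S-transferase gene gst-4 is known as a target of the oxidative stress factor SKN-1. The gene gst-4 had 61.2, 70.7 and 67.4 CPM in rhy-1, against 74.0, 183 and 100.2 CPM in vhl-1 and 158, 137 and 152 CPM in N2. The gst-4 difference was -0.84 ± 0.22 (edgeR adjusted p = 0.017707), without overlap, and rhy-1 was called lower than N2 while vhl-1 was not called against it. The gene gst-20 had 27, 27.3 and 23.8 CPM in rhy-1, against 46.8, 39.8 and 70.1 CPM in vhl-1. For gst-20 the log2 fold change was -1.0 ± 0.19 (edgeR adjusted p = 0.0011019), with no overlap between the mutants, and rhy-1 was called lower than N2 while vhl-1 was not called against it. The call did not survive for gst-4 without rhy-1 replicate 1. Other settings ended the call of gst-4 with only these 6 libraries fitted, of ugt-18 with transcripts tested one by one, and of gst-20 with the L4 molt level as a covariate.

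Genes of the defence against microbes differed in both directions. The 107 tested C-type lectin genes gave 13 higher and 17 lower members (28% called, median 0.03). The 17 count clec-209 under both of its identifiers, which are 1 measurement. The 25 tested lysozyme, saposin-like and thaumatin-like genes gave 6 higher and 3 lower (36% called, median 0.18). The 17 tested dod and irg genes, named for regulation downstream of daf-16 or by infection, gave 1 higher and 7 lower (47.1% called, median -0.56). The 13 higher lectin genes moved to 7 with the L4 molt covariate or by single transcripts. The 17 lower lectin genes moved to 10 by single transcripts. The 1 higher dod or irg gene moved to 3 without vhl-1 replicate 1, and to 2 with no expression filter. The lysozyme gene lys-7 had 98.2, 124 and 127 CPM in rhy-1, against 9.09, 7.39 and 10.13 CPM in vhl-1 and 19.0, 19.5 and 15.2 CPM in N2. Between the mutants lys-7 differed by 3.71 ± 0.21 (edgeR adjusted p = 1.4e-09), with every rhy-1 library above every vhl-1 library, and rhy-1 was called higher and vhl-1 lower than N2. The lysozyme gene lys-1 went the other way and had 163, 162 and 157 CPM in rhy-1, against 257, 260.4 and 258 CPM in vhl-1 and 192, 168 and 165 CPM in N2. In lys-1 the mutants differed by -0.68 ± 0.08 (edgeR adjusted p = 1.63e-06), without overlap, and vhl-1 was called higher than N2 while rhy-1 was not called against it. The gene lys-4 had 1632, 1654 and 1504 CPM in rhy-1, against 1099.6, 537 and 396 CPM in vhl-1 and 344, 279.9 and 249.5 CPM in N2. The lys-4 difference was 1.24 ± 0.32 (edgeR adjusted p = 0.016968), with no overlap between the mutants, and both mutants were called higher than N2. The thaumatin-like gene thn-2 had 22.5, 39.8 and 31.7 CPM in rhy-1, against 9.97, 6.27 and 9.44 CPM in vhl-1 and 33.9, 31.8 and 23.6 CPM in N2. For thn-2 the log2 fold change was 1.87 ± 0.32 (edgeR adjusted p = 0.000733), with every rhy-1 library above every vhl-1 library, and vhl-1 was called lower than N2 while rhy-1 was not called against it. The lectin gene clec-7 had 21.5, 28.6 and 27.3 CPM in rhy-1, against 6.35, 3.47 and 2.53 CPM in vhl-1 and 9.20, 4.83 and 6.39 CPM in N2. Between the mutants clec-7 differed by 2.64 ± 0.28 (edgeR adjusted p = 1.41e-06), without overlap, and rhy-1 was called higher than N2 while vhl-1 was not called against it. The lectin gene clec-42 had a ratio of counts of 70.5-fold (95% counting interval 19.2 to 587). Calls that ended with a left-out library were those of lys-4 without vhl-1 replicate 2 or vhl-1 replicate 3. Under other settings the call was lost for lys-4 with only these 6 libraries fitted or the L4 molt level as a covariate.

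Of 22 listed epidermal antimicrobial peptide genes, which answer fungal infection and wounding, 5 passed the filter on low counts and 4 of these were higher in rhy-1. The share called was 80% (median 3.37), beside 14.2% of all tested genes. Genes this low can pass the filter through the genotypes where they are high, so this share is not read as a trait of the list. The gene nlp-31 had 4.97, 7.3 and 7.89 CPM in rhy-1, against 0.438, 0.784 and 0.691 CPM in vhl-1 and 3.51, 2.47 and 2.05 CPM in N2. In nlp-31 the mutants differed by 3.37 ± 0.39 (edgeR adjusted p = 1.69e-06), with no overlap between the mutants, and rhy-1 was called higher and vhl-1 lower than N2. The gene nlp-30 had 4.97, 6.6 and 4.52 CPM in rhy-1, against 0.110, 0.224 and 0.115 CPM in vhl-1 and 0.517, 0 and 0.241 CPM in N2. The nlp-30 difference was 5.04 ± 0.68 (edgeR adjusted p = 1.72e-05), with every rhy-1 library above every vhl-1 library, and rhy-1 was called higher than N2 while vhl-1 was not called against it. The gene cnc-4 had no count in vhl-1 and was at least 16.6-fold higher in rhy-1, and nlp-24 differed by 0.93 ± 0.19 (edgeR adjusted p = 0.0012929). The infection response gene irg-2 was higher in rhy-1 too and had 7.95, 7.60 and 7.47 CPM in rhy-1, against 0.548, 0.224 and 0.115 CPM in vhl-1 and 1.03, 0.235 and 0.603 CPM in N2. For irg-2 the log2 fold change was 4.62 ± 0.50 (edgeR adjusted p = 7.45e-07), without overlap, and rhy-1 was called higher than N2 while vhl-1 was not called against it. Unlike it, irg-4 had 98.6, 111 and 81.6 CPM in rhy-1, against 238, 412 and 370.2 CPM in vhl-1 and 118.9, 124 and 134 CPM in N2. Between the mutants irg-4 differed by -1.81 ± 0.18 (edgeR adjusted p = 8.09e-07), with no overlap between the mutants, and vhl-1 was called higher than N2 while rhy-1 was not called against it. The gene irg-5 had 9.14, 9.30 and 6.21 CPM in rhy-1, against 21.5, 25.1 and 24.2 CPM in vhl-1 and 13, 7.77 and 7.12 CPM in N2. In irg-5 the mutants differed by -1.52 ± 0.20 (edgeR adjusted p = 1.28e-05), with every rhy-1 library below every vhl-1 library, and vhl-1 was called higher than N2 while rhy-1 was not called against it. The gene irg-3 had 30.7, 30.6 and 30.9 CPM in rhy-1, against 67.2, 61.1 and 58.1 CPM in vhl-1 and 39.5, 34 and 35.1 CPM in N2. The irg-3 difference was -1.02 ± 0.14 (edgeR adjusted p = 1.96e-05), without overlap, and vhl-1 was called higher than N2 while rhy-1 was not called against it. The gene dod-24 had 317, 314 and 352 CPM in rhy-1, against 595, 635 and 549 CPM in vhl-1 and 83.1, 105 and 91.5 CPM in N2. For dod-24 the log2 fold change was -0.86 ± 0.10 (edgeR adjusted p = 2.58e-06), with no overlap between the mutants, and both mutants were called higher than N2. The genes dod-23 (-1.14) and dod-3 (-3.53) were also lower in rhy-1. Calls lost under another setting were those of nlp-24 with transcripts tested one by one.

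Lysosomal protease genes gave 5 higher and 8 lower of 21 tested (61.9% called, median -0.20), beside 14.2% of all genes. The 5 moved to 3 and 2 without rhy-1 replicates 2 and 3, to 3 and 2 without vhl-1 replicates 2 and 3, to 1 with the L4 molt covariate, and to 2 by single transcripts. The cathepsin B-like gene cpr-4 had 444, 527 and 572 CPM in rhy-1, against 85.9, 113 and 72.1 CPM in vhl-1 and 262, 206.9 and 172 CPM in N2. Between the mutants cpr-4 differed by 2.51 ± 0.22 (edgeR adjusted p = 7.08e-07), with every rhy-1 library above every vhl-1 library, and rhy-1 was called higher and vhl-1 lower than N2. The aspartyl protease gene asp-14 had 153, 138 and 143 CPM in rhy-1, against 528, 478 and 601 CPM in vhl-1 and 329.5, 380.1 and 453 CPM in N2. In asp-14 the mutants differed by -1.89 ± 0.12 (edgeR adjusted p = 3.38e-10), without overlap, and rhy-1 was called lower and vhl-1 higher than N2. A second such gene, asp-8, had 5.46, 3.40 and 4.0 CPM in rhy-1, against 45.7, 46.7 and 47.7 CPM in vhl-1 and 22.5, 23.7 and 26.8 CPM in N2. The asp-8 difference was -3.44 ± 0.18 (edgeR adjusted p = 5.74e-12), with no overlap between the mutants, and rhy-1 was called lower and vhl-1 higher than N2. The gene asp-6 had 545, 527 and 614 CPM in rhy-1, against 1187, 924 and 919 CPM in vhl-1. For asp-6 the log2 fold change was -0.85 ± 0.10 (edgeR adjusted p = 4.16e-06), with every rhy-1 library below every vhl-1 library, and vhl-1 was called higher than N2 while rhy-1 was not called against it. Of 7 tested haf transporter genes haf-4 (0.62, edgeR adjusted p = 0.012769) and haf-7 (0.72, edgeR adjusted p = 0.031667) were higher and haf-6 lower (42.9% called, median 0.05). The call was lost for haf-7 without rhy-1 replicate 1, rhy-1 replicate 3 or vhl-1 replicate 2, and for haf-4 and haf-7 without vhl-1 replicate 3. The call was also lost for haf-4 and haf-7 with the L4 molt level as a covariate or transcripts tested one by one.

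Of 160 tested nuclear hormone receptor genes, 21 were higher in rhy-1 and 3 lower (15% called, median 0.21), beside 14.2% of all tested genes. The 21 moved to 13 without rhy-1 replicate 3, to 13 and 12 without vhl-1 replicates 1 and 3, to 11 with the L4 molt covariate, and to 7 by single transcripts. The 3 moved to 1 with the L4 molt covariate or by single transcripts. The gene nhr-8 had 65.9, 73.6 and 77.5 CPM in rhy-1, against 33.9, 21.4 and 20.3 CPM in vhl-1 and 26.9, 24.7 and 46.0 CPM in N2. Between the mutants nhr-8 differed by 1.52 ± 0.29 (edgeR adjusted p = 0.0019225), without overlap, and rhy-1 was called higher than N2 while vhl-1 was not called against it. The gene nhr-62 had 33.7, 29 and 37.8 CPM in rhy-1, against 5.37, 9.30 and 6.79 CPM in vhl-1 and 4.24, 5.18 and 4.71 CPM in N2. In nhr-62 the mutants differed by 2.22 ± 0.16 (edgeR adjusted p = 1.36e-09), with no overlap between the mutants, and both mutants were called higher than N2. The gene nhr-11 had 10.03, 7.50 and 11.15 CPM in rhy-1, against 0.767, 1.23 and 1.73 CPM in vhl-1 and 1.86, 1.41 and 1.33 CPM in N2. The nhr-11 difference was 2.94 ± 0.30 (edgeR adjusted p = 2.75e-07), with every rhy-1 library above every vhl-1 library, and rhy-1 was called higher than N2 while vhl-1 was not called against it. The gene nhr-74 had 2.19, 0.500 and 0.947 CPM in rhy-1, against 5.26, 5.38 and 5.99 CPM in vhl-1 and 6.31, 4.83 and 4.71 CPM in N2. For nhr-74 the log2 fold change was -2.18 ± 0.49 (edgeR adjusted p = 0.0049275), without overlap, and rhy-1 was called lower than N2 while vhl-1 was not called against it. Of 67 tested neuropeptide and insulin-like genes 2 were higher and 2 lower (5.97% called, median -0.08). The 2 higher peptide genes moved to 0, 0 and 1 without rhy-1 replicates 1, 2 and 3, to 0 without vhl-1 replicate 1 or 3, to 1 without some single libraries of other genotypes, to 1 with the filter at 30 counts or with only these 6 libraries fitted, and to 0 with the L4 molt covariate or by single transcripts. The 2 lower peptide genes moved to 1 without rhy-1 replicate 2 or 3, to 1 without vhl-1 replicate 2, and to 1 with the filter at 30 counts, with only these 6 libraries fitted, with the replicate block, with the L4 molt covariate or by single transcripts. The neuropeptide gene flp-3 had 0.795, 0.500 and 1.16 CPM in rhy-1, against 2.3, 3.14 and 2.53 CPM in vhl-1. Between the mutants flp-3 differed by -1.69 ± 0.33 (edgeR adjusted p = 0.0011064), with no overlap between the mutants, and rhy-1 was called lower than N2 while vhl-1 was not called against it. Another setting ended the call of nhr-11, nhr-62 and nhr-74 with transcripts tested one by one.

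The 48 tested transthyretin-related genes gave 14 higher and 2 lower members (33.3% called, median 0.43). The 14 moved to 9 by single transcripts. The 2 moved to 1, 0 and 1 without rhy-1 replicates 1, 2 and 3, to 1, 1 and 0 without vhl-1 replicates 1, 2 and 3, and to 0 with the L4 molt covariate or by single transcripts. The gene ttr-29 had 10.8, 10.098 and 13.8 CPM in rhy-1, against 2.08, 3.47 and 2.42 CPM in vhl-1 and 3.41, 2.94 and 3.26 CPM in N2. In ttr-29 the mutants differed by 2.12 ± 0.22 (edgeR adjusted p = 3.24e-07), with every rhy-1 library above every vhl-1 library, and rhy-1 was called higher than N2 while vhl-1 was not called against it. The gene ttr-33 had 44.5, 47.1 and 47.3 CPM in rhy-1, against 15.9, 17.7 and 8.63 CPM in vhl-1 and 8.89, 8.12 and 11.101 CPM in N2. The ttr-33 difference was 1.72 ± 0.25 (edgeR adjusted p = 9.39e-05), without overlap, and rhy-1 was called higher than N2 while vhl-1 was not called against it. The gene ttr-15 had 559, 558 and 562 CPM in rhy-1, against 277, 358 and 252 CPM in vhl-1 and 222, 224 and 294 CPM in N2. For ttr-15 the log2 fold change was 0.92 ± 0.15 (edgeR adjusted p = 0.000154), with no overlap between the mutants, and rhy-1 was called higher than N2 while vhl-1 was not called against it. Of 21 tested antioxidant genes 4 were higher and none lower (19% called, median 0.15), beside 14.2% called and 8.41% higher of all genes. These 4 antioxidant genes moved to 2 without rhy-1 replicate 2 or 3, to 2 without vhl-1 replicate 2, to 1 with the L4 molt covariate, and to 2 by single transcripts. The glutathione peroxidase gene gpx-5 had 481, 489.8 and 642 CPM in rhy-1, against 94.6, 103 and 90.0 CPM in vhl-1 and 96.1, 105 and 121 CPM in N2. Between the mutants gpx-5 differed by 2.49 ± 0.17 (edgeR adjusted p = 7.7e-09), with every rhy-1 library above every vhl-1 library, and rhy-1 was called higher than N2 while vhl-1 was not called against it. In other genotypes gpx-5 averaged 570.1 CPM in egl-9, 555 CPM in egl-9;vhl-1, 111 CPM in hif-1 and 104.5 CPM in egl-9 hif-1. The thioredoxin gene trx-3 had 3.38, 3.40 and 2.63 CPM in rhy-1, against 0.548, 1.12 and 0.806 CPM in vhl-1. In trx-3 the mutants differed by 1.91 ± 0.41 (edgeR adjusted p = 0.0024518), without overlap, and rhy-1 was called higher than N2 while vhl-1 was not called against it. The 19 tested heat shock genes held 1 call (5.26% called, median 0.12). The mitochondrial chaperone gene hsp-60 had 446, 424 and 447 CPM in rhy-1, against 564, 593 and 580.4 CPM in vhl-1 and 673, 659 and 755 CPM in N2. The hsp-60 difference was -0.40 ± 0.07 (edgeR adjusted p = 0.000539), with no overlap between the mutants, and both mutants were called lower than N2. Other settings ended the call of trx-3 with the L4 molt level as a covariate.

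Cilium genes, which build the sensory endings of neurons, gave 4 higher and 1 lower of 31 tested (16.1% called, median 0.18), beside 14.2% of all tested genes. The 4 higher cilium genes moved to 2 without rhy-1 replicate 1, to 2 without vhl-1 replicate 1 or 3, to 2 with the filter at 30 counts or with the L4 molt covariate, and to 1 by single transcripts. The 1 lower cilium gene moved to 0 with the L4 molt covariate. The gene che-12 had 23.6, 25.2 and 24.8 CPM in rhy-1, against 1.86, 2.35 and 1.73 CPM in vhl-1 and 1.76, 1.53 and 0.724 CPM in N2. For che-12 the log2 fold change was 3.62 ± 0.22 (edgeR adjusted p = 1.1e-10), with every rhy-1 library above every vhl-1 library, and rhy-1 was called higher than N2 while vhl-1 was not called against it. In other genotypes che-12 averaged 45.3 CPM in egl-9, 36.4 CPM in egl-9;vhl-1, 1.51 CPM in hif-1 and 1.64 CPM in egl-9 hif-1. The gene dyf-3 had 51.1, 39.8 and 44.9 CPM in rhy-1, against 12.8, 11.8 and 8.29 CPM in vhl-1 and 2.38, 2.35 and 4.22 CPM in N2. Between the mutants dyf-3 differed by 2.04 ± 0.24 (edgeR adjusted p = 3.98e-06), without overlap, and both mutants were called higher than N2. The 22 tested neuronal genes gave 2 higher and 1 lower (13.6% called, median 0.10), the higher ones being unc-64 (0.66) and unc-13 (0.40) and the lower one unc-119 (-0.85). The call did not survive for unc-13 without rhy-1 replicate 1, for unc-119 without rhy-1 replicate 2 or vhl-1 replicate 2, and for unc-119 and unc-13 without rhy-1 replicate 3 or vhl-1 replicate 3. Under other settings the call was lost for unc-13 with no expression filter, for unc-119 and unc-13 with only these 6 libraries fitted, for dyf-3, unc-119 and unc-13 with transcripts tested one by one, and for unc-119, unc-13 and unc-64 with the L4 molt level as a covariate.

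Genes of the cuticle and the molt, which worms express in bursts as each new cuticle is made, differed between the mutants and also among the vhl-1 libraries. Of 117 tested col genes, 30 were higher in rhy-1 and 12 lower (35.9% called, median log2 fold change 1.04), beside 14.2% of all genes. Against N2, 78 were higher and 9 lower in rhy-1 (median 2.69), and 12 were higher and 8 lower in vhl-1 (median 0.88). The gene col-78 had 10.3, 11.5 and 10.2 CPM in rhy-1, against 1.53, 1.90 and 2.07 CPM in vhl-1 and 0, 0.118 and 0.121 CPM in N2. In col-78 the mutants differed by 2.53 ± 0.25 (edgeR adjusted p = 8.02e-07), with no overlap between the mutants, and both mutants were called higher than N2. By contrast, col-8 had 206.6, 189.9 and 163 CPM in rhy-1, against 427, 389 and 536 CPM in vhl-1 and 617, 702 and 629 CPM in N2. The col-8 difference was -1.27 ± 0.16 (edgeR adjusted p = 1.59e-05), with every rhy-1 library below every vhl-1 library, and both mutants were called lower than N2. The gene col-91 had 330.3, 188 and 309.6 CPM in rhy-1, against 28.7, 8.62 and 1.151 CPM in vhl-1 and 0.930, 0.824 and 22.4 CPM in N2. For col-91 the log2 fold change was 4.42 ± 1.13 (edgeR adjusted p = 0.016781), without overlap, and rhy-1 was called higher than N2 while vhl-1 was not called against it. The gene col-88 had 42.2, 37.4 and 38.5 CPM in rhy-1, against 3.62, 0.448 and 0.115 CPM in vhl-1 and 0.103, 0.353 and 1.93 CPM in N2. Between the mutants col-88 differed by 4.78 ± 1.26 (edgeR adjusted p = 0.019482), with no overlap between the mutants, and rhy-1 was called higher than N2 while vhl-1 was not called against it. In both col-91 and col-88 the levels within vhl-1 and within N2 spread widely. Of 17 tested body-shape collagens 1 was higher, dpy-17 (1.18, edgeR adjusted p = 0.0088567), and none lower (5.88% called, median 1.66). The 1 body-shape collagen moved to 0 without rhy-1 replicate 2, to 12 without vhl-1 replicate 2, to 2 without egl-9 replicate 3, to 2 without egl-9;vhl-1 replicate 2, to 0 with the L4 molt covariate or by single transcripts, and to 3 with DESeq2. In a list of collagen hydroxylation and processing enzymes with 18 tested members 2 were higher and 2 lower (22.2% called, median 0.09). Its 2 higher genes moved to 1 without rhy-1 replicate 2 or 3, to 1 without vhl-1 replicate 3, to 1 with no expression filter, with only these 6 libraries fitted or by single transcripts, and to 0 with the L4 molt covariate. Its 2 lower genes moved to 1 without rhy-1 replicate 2, to 1 without vhl-1 replicate 1, and to 1 with only these 6 libraries fitted, with the L4 molt covariate or by single transcripts. The peroxidase gene mlt-7 had 134, 108 and 138 CPM in rhy-1, against 49.2, 40.9 and 32.9 CPM in vhl-1 and 43.0, 34.1 and 42.2 CPM in N2. In mlt-7 the mutants differed by 1.62 ± 0.33 (edgeR adjusted p = 0.0034207), with every rhy-1 library above every vhl-1 library, and rhy-1 was called higher than N2 while vhl-1 was not called against it. Calls that ended with a left-out library were those of dpy-17 without rhy-1 replicate 2, and of col-88 and col-91 without vhl-1 replicate 2 or vhl-1 replicate 3. Calls lost under another setting were those of col-91 with only these 6 libraries fitted, of col-88, col-91, dpy-17 and mlt-7 with the L4 molt level as a covariate, and of col-88, col-91 and dpy-17 with transcripts tested one by one.

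Hedgehog-related genes, which encode secreted proteins of the epidermis, gave 8 higher and 3 lower of 30 tested (36.7% called, median 1.47), and patched-related genes 7 higher and none lower of 25 (28% called, median 0.55). The gene grd-14 had 129.8, 96.2 and 118.6 CPM in rhy-1, against 16.2, 17.2 and 9.67 CPM in vhl-1 and 3.82, 6.59 and 11.8 CPM in N2. The grd-14 difference was 2.99 ± 0.55 (edgeR adjusted p = 0.0018966), without overlap, and rhy-1 was called higher than N2 while vhl-1 was not called against it. The gene grl-4 had 61.0, 53.4 and 71.5 CPM in rhy-1, against 19.9, 15.8 and 17 CPM in vhl-1 and 24.0, 21.1 and 26.9 CPM in N2. For grl-4 the log2 fold change was 1.82 ± 0.31 (edgeR adjusted p = 0.000763), with no overlap between the mutants, and rhy-1 was called higher than N2 while vhl-1 was not called against it. The patched-related gene ptr-8 had 22.4, 24.9 and 30.5 CPM in rhy-1, against 6.35, 9.07 and 3.80 CPM in vhl-1 and 5.58, 5.53 and 6.64 CPM in N2. Between the mutants ptr-8 differed by 2.01 ± 0.24 (edgeR adjusted p = 4.16e-06), with every rhy-1 library above every vhl-1 library, and rhy-1 was called higher than N2 while vhl-1 was not called against it. Of 32 tested L4 molt genes, markers of the last larval molt, 8 were higher and none lower (25% called, median 1.21). The lipocalin-related gene lpr-6 had 40.7, 32.3 and 34.3 CPM in rhy-1, against 3.73, 5.38 and 5.3 CPM in vhl-1 and 0.517, 0.235 and 0.241 CPM in N2. In lpr-6 the mutants differed by 2.90 ± 0.18 (edgeR adjusted p = 1.85e-10), without overlap, and both mutants were called higher than N2. In other genotypes lpr-6 averaged 79.1 CPM in egl-9, 114 CPM in egl-9;vhl-1, 0.871 CPM in hif-1 and 0.770 CPM in egl-9 hif-1. The astacin protease gene nas-38 had 33.2, 20.1 and 26 CPM in rhy-1, against 3.83, 5.26 and 0.460 CPM in vhl-1 and 1.96, 1.65 and 2.41 CPM in N2. The nas-38 difference was 3.04 ± 0.52 (edgeR adjusted p = 0.00078), with no overlap between the mutants, and rhy-1 was called higher than N2 while vhl-1 was not called against it. The call was also lost for nas-38 with only these 6 libraries fitted.

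Of 66 tested genes of the pharyngeal cuticle and glands 13 were higher and 2 lower (22.7% called, median 0.30). The 2 lower genes here moved to 1 without rhy-1 replicate 2 or 3, to 1 without vhl-1 replicate 1 or 3, to 4 with the filter at 30 counts, to 0 with the L4 molt covariate, and to 1 by single transcripts. The gland gene phat-5 had 13.6, 12.6 and 15.9 CPM in rhy-1, against 0.219, 0.112 and 0.345 CPM in vhl-1 and 0, 0 and 0.121 CPM in N2. For phat-5 the log2 fold change was 5.88 ± 0.48 (edgeR adjusted p = 1.02e-08), with every rhy-1 library above every vhl-1 library, and rhy-1 was called higher than N2 while vhl-1 was not called against it. The gene pqn-36 had 51.1, 40.8 and 43.3 CPM in rhy-1, against 7.34, 6.72 and 4.03 CPM in vhl-1 and 5.68, 3.41 and 4.10 CPM in N2. Between the mutants pqn-36 differed by 2.90 ± 0.48 (edgeR adjusted p = 0.000638), without overlap, and rhy-1 was called higher than N2 while vhl-1 was not called against it. The gene abu-10 had 163, 129.7 and 137 CPM in rhy-1, against 22.1, 1.23 and 0.806 CPM in vhl-1 and 0.827, 1.06 and 12.3 CPM in N2. In abu-10 the mutants differed by 4.13 ± 1.01 (edgeR adjusted p = 0.013344), with no overlap between the mutants, and rhy-1 was called higher than N2 while vhl-1 was not called against it. The call was lost for abu-10 without vhl-1 replicate 3. Another setting ended the call of abu-10 with only these 6 libraries fitted or the L4 molt level as a covariate, and of abu-10 and pqn-36 with transcripts tested one by one.

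The vhl-1 libraries were not alike in these lists. Relative to the N2 mean, the named body-shape collagens stood, in mean log2 CPM, at 4.84, 3.99 and 3.56 in the rhy-1 libraries, against 0.04, 3.86 and -0.09 in the vhl-1 libraries and -0.12, -0.02 and 0.14 in N2. Their summed level was 3471.4, 2521.0 and 1731.4 CPM in rhy-1, against 178.7, 1991.3 and 122.6 CPM in vhl-1 and 117.1, 98.7 and 168.1 CPM in N2, so vhl-1 replicate 2 lay among the rhy-1 libraries. The cuticle collagens of the col family stood at 2.56, 2.44 and 2.36 in rhy-1, against 0.69, 1.93 and -0.13 in vhl-1. The L4 molt genes stood at 2.35, 1.46 and 1.19 in rhy-1, against 0.18, 0.79 and 0.03 in vhl-1. The hedgehog-related genes stood at 2.92, 2.31 and 2.07 in rhy-1, against 0.31, 1.53 and -0.18 in vhl-1, and the pharyngeal cuticle and gland genes at 1.91, 1.82 and 1.79 in rhy-1, against 0.63, 0.51 and -0.29 in vhl-1. In vhl-1 replicate 2, as given above, the transcripts vhl-1 and nkat-3 had no count. All worms carry the same stage label, and neither the part of stage in these differences nor what sets vhl-1 replicate 2 apart was tested.

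Single libraries and settings moved these counts. The 30 higher col genes moved to 15, 59 and 12 without vhl-1 replicates 1, 2 and 3, to 10 with only these 6 libraries fitted, to 5 with the L4 molt covariate, and to 16 by single transcripts, and the 12 lower ones to 3 with the L4 molt covariate. The 8 higher hedgehog-related genes moved to 5 without rhy-1 replicate 1, to 5, 15 and 5 without vhl-1 replicates 1, 2 and 3, to 2 with only these 6 libraries fitted, to 4 with the L4 molt covariate, and to 3 by single transcripts, and the 3 lower ones to 0 with the L4 molt covariate. The 7 patched-related genes moved to 4 without rhy-1 replicate 1 or 2, to 3, 11 and 4 without vhl-1 replicates 1, 2 and 3, and to 3 with the L4 molt covariate or by single transcripts. The 8 L4 molt genes moved to 4 without rhy-1 replicate 1, to 4 without vhl-1 replicate 3, to 2 with the L4 molt covariate, to 14 with DESeq2, and to 4 by single transcripts. Since the covariate is the mean level of these same genes, their fall to 2 is built in and is no separate test. The 13 pharyngeal genes moved to 8 without vhl-1 replicate 3, to 8 with only these 6 libraries fitted, and to 5 with the L4 molt covariate or by single transcripts.

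**Figure D4:**
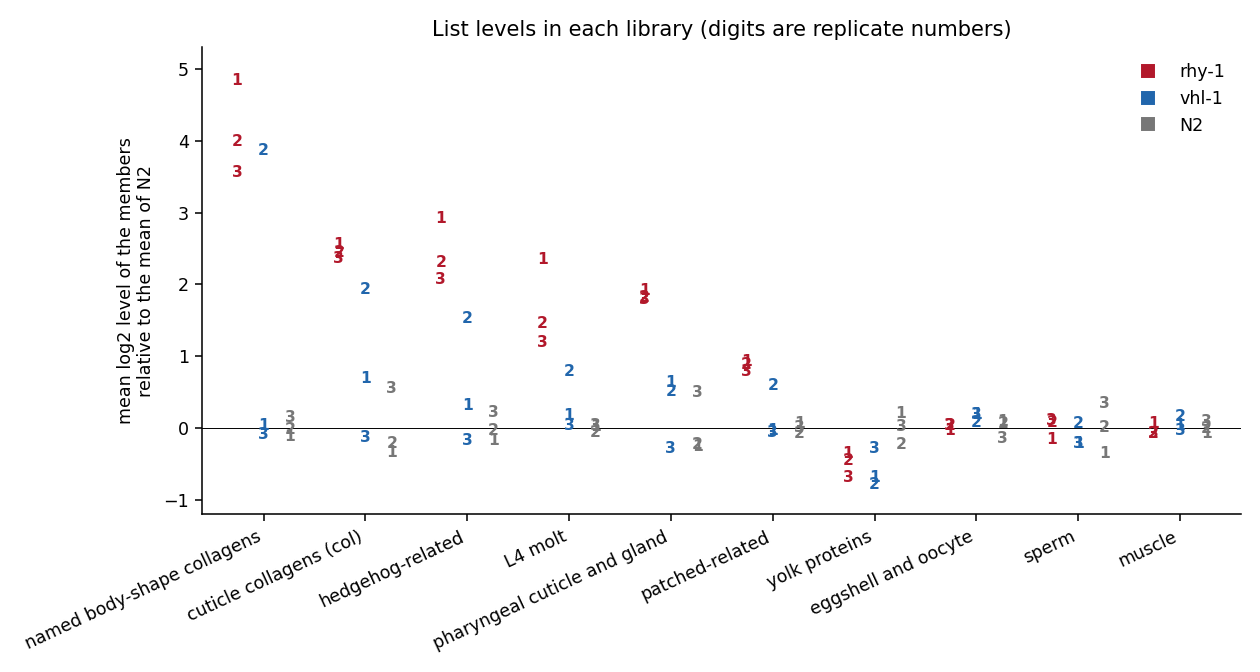
Mean log2 CPM of 10 gene lists in each rhy-1, vhl-1 and N2 library, relative to the N2 mean (0 on the axis), with digits for the replicate numbers. In the cuticle, molt and hedgehog-related lists vhl-1 replicate 2 lies toward or among the rhy-1 libraries, while vhl-1 replicates 1 and 3 lie nearer N2.

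Many ribosomal protein genes were slightly lower in rhy-1. Of 70 tested cytosolic ribosomal protein genes, 30 were lower and none higher (42.9% called, median log2 fold change -0.29), beside 14.2% of all genes. Against N2, 0 were higher and 64 lower in rhy-1 (median -0.51), and 0 were higher and 12 lower in vhl-1 (median -0.23). The gene rps-25 had 31.5, 33.0 and 31.9 CPM in rhy-1, against 43.3, 46.6 and 46.2 CPM in vhl-1 and 51.5, 49.2 and 49.1 CPM in N2. The rps-25 difference was -0.50 ± 0.09 (edgeR adjusted p = 0.000269), with every rhy-1 library below every vhl-1 library, and rhy-1 was called lower than N2 while vhl-1 was not called against it. The gene rps-10 had 166, 176 and 169 CPM in rhy-1, against 229.5, 220.3 and 245 CPM in vhl-1 and 254, 290.3 and 249.8 CPM in N2. For rps-10 the log2 fold change was -0.44 ± 0.10 (edgeR adjusted p = 0.0024174), without overlap, and rhy-1 was called lower than N2 while vhl-1 was not called against it. The gene rpl-14 had 73.8, 76.2 and 77.0 CPM in rhy-1, against 93.2, 94.7 and 107 CPM in vhl-1 and 109.7, 121 and 112 CPM in N2. Between the mutants rpl-14 differed by -0.38 ± 0.08 (edgeR adjusted p = 0.0022229), with no overlap between the mutants, and rhy-1 was called lower than N2 while vhl-1 was not called against it. The 67 tested mitochondrial ribosomal protein genes held 2 lower and no higher members (2.99% called, median -0.13). Of 33 tested proteasome genes 8 were lower and none higher (24.2% called, median -0.19). The core subunit gene pbs-7 had 109.7, 122 and 118 CPM in rhy-1, against 145, 136 and 152 CPM in vhl-1 and 152, 162 and 146 CPM in N2. In pbs-7 the mutants differed by -0.31 ± 0.07 (edgeR adjusted p = 0.00435), with every rhy-1 library below every vhl-1 library, and rhy-1 was called lower than N2 while vhl-1 was not called against it. The 30 ribosomal genes moved to 7 and 10 without rhy-1 replicates 1 and 2, to 19 and 4 without vhl-1 replicates 1 and 3, to 56 without egl-9 hif-1 replicate 3, to 46 with the filter at 30 counts, and to 2 with the L4 molt covariate. The 8 proteasome genes moved to 1 without rhy-1 replicate 1 or 2, to 2 without vhl-1 replicate 1 or 3, to 0 with the L4 molt covariate, and to 3 by single transcripts. The 2 mitochondrial ribosomal genes moved to 1 and 0 without rhy-1 replicates 2 and 3, to 1, 1 and 0 without vhl-1 replicates 1, 2 and 3, to 1 without some single libraries of other genotypes, and to 1 with only these 6 libraries fitted, with the replicate block, with the L4 molt covariate or by single transcripts. Other settings ended the call of pbs-7 and rpl-14 with the L4 molt level as a covariate.

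**Figure D5:**
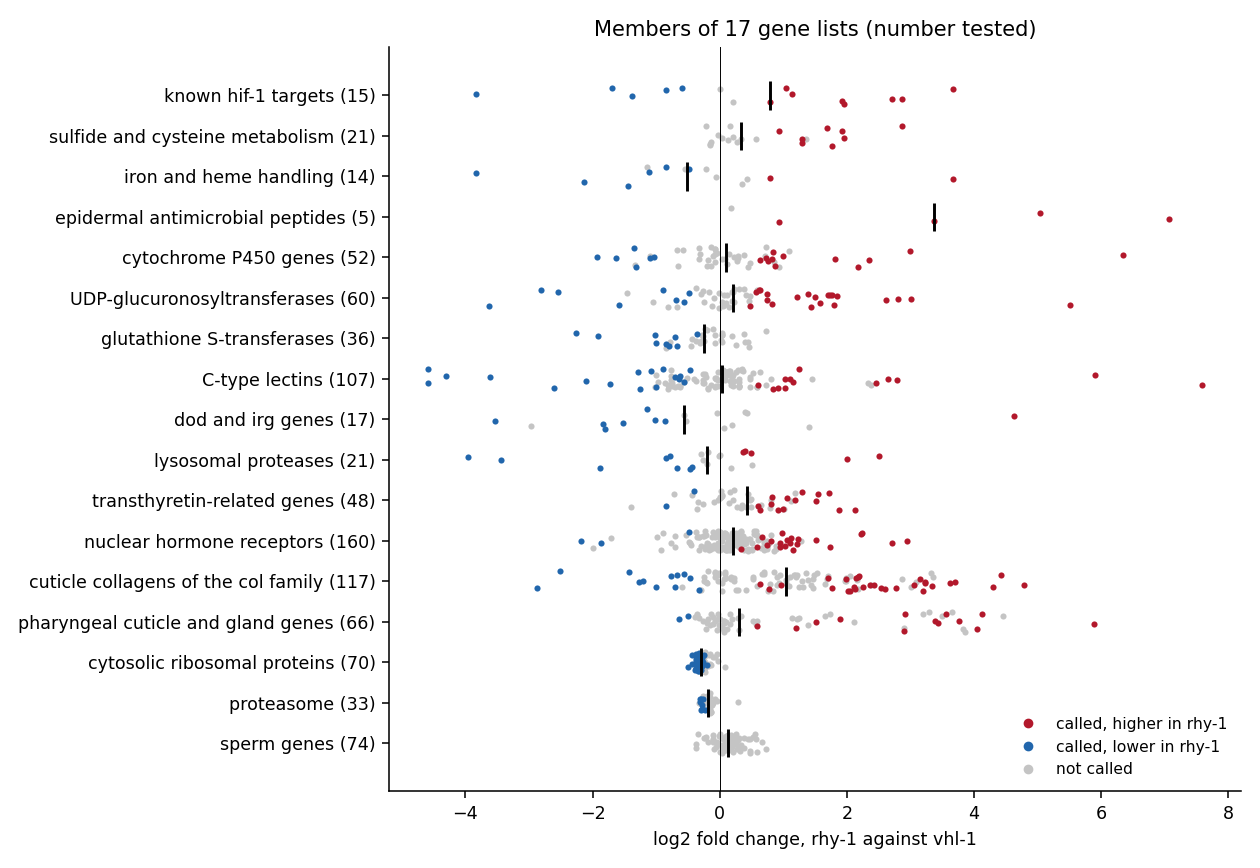
Log2 fold change of rhy-1 over vhl-1 for the tested members of 17 gene lists (points), with a black bar at each list's median and the number of members tested beside its name. The HIF-1 targets spread to both sides of 0. The ribosomal protein genes lie in a narrow band around a median of -0.29, and the col collagens have a median of 1.04.

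In lists for the germline, embryo and tissues the share called ran from 0 to 27.8%, beside 14.2% of all tested genes. The 6 tested yolk protein genes (median 0.07) and the 74 tested sperm genes (median 0.13) held none. The summed level of the yolk proteins was 101579.8, 97345.9 and 85086.1 CPM in rhy-1, against 83304.7, 78793.7 and 104938.7 CPM in vhl-1 and 138868.1, 104478.2 and 123587.3 CPM in N2, and the mutants overlapped. Of 33 tested eggshell and oocyte genes 4 were lower (12.1% called, median -0.14), among them perm-2 (-0.42), mex-1 (-0.31) and puf-11 (-0.31). The 4 moved to 1 without rhy-1 replicate 1 or 2, to 1 without vhl-1 replicate 1 or 3, and to 0 with the L4 molt covariate. Of 10 tested zygotic embryo genes 1 was higher, elt-7 (0.55), and 1 lower (20% called, median -0.05). The 1 higher zygotic gene moved to 2 and 0 without rhy-1 replicates 1 and 2, to 0 without vhl-1 replicate 1 or 3, to 2 without hif-1 replicate 3, and to 0 with the L4 molt covariate or by single transcripts. The 1 lower zygotic gene moved to 0 without rhy-1 replicate 1, 2 or 3, to 0 without vhl-1 replicate 1 or 2, and to 0 with the filter at 30 counts, with the L4 molt covariate, with DESeq2 or by single transcripts. Of 15 listed male-enriched genes 2 were tested and neither was called (median 1.08). Of 25 tested muscle genes 3 were lower (12% called, median -0.11), unc-27 (-0.30), tnt-2 (-0.25) and deb-1 (-0.32). These 3 muscle genes moved to 1 without rhy-1 replicate 2 or 3, to 5 without egl-9 hif-1 replicate 3, to 5 without egl-9;vhl-1 replicate 3, to 5 without hif-1 replicate 2, to 5 with RLE size factors, with no expression filter, with the filter at 30 counts or with DESeq2, to 0 with the L4 molt covariate, and to 1 by single transcripts. Of 18 tested intestinal genes lact-3 (0.45) and asp-3 (0.36) were higher and act-5 (-0.48), asp-1 (-0.68) and spl-1 (-0.31) lower (27.8% called, median -0.00). Single libraries decided the call of mex-1 and puf-11 without rhy-1 replicate 1, of asp-3, deb-1, elt-7, mex-1, puf-11 and tnt-2 without rhy-1 replicate 2, of asp-3, deb-1 and tnt-2 without rhy-1 replicate 3, of deb-1, elt-7, mex-1 and perm-2 without vhl-1 replicate 1, of asp-3 and deb-1 without vhl-1 replicate 2, and of asp-3, elt-7, lact-3, mex-1, puf-11, tnt-2 and unc-27 without vhl-1 replicate 3. Under other settings the call was lost for asp-3, deb-1, elt-7, lact-3, mex-1, perm-2, puf-11, tnt-2 and unc-27 with the L4 molt level as a covariate, and for act-5, asp-3, deb-1, elt-7, lact-3 and tnt-2 with transcripts tested one by one.

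In 46 of 13043 tested genes the mutants were called on opposite sides of N2. In 27 of them rhy-1 was higher and vhl-1 lower than N2, in 19 the reverse, and all 46 were also called between the mutants. The 46 and the 19 count clec-209 under both of its identifiers, which hold equal values and are 1 measurement. Both contrasts share the N2 libraries, so the count is given without a test. The gene Y102A5C.6 had 0.298, 0.700 and 0.421 CPM in rhy-1, against 26.1, 24.0 and 24.4 CPM in vhl-1 and 11.6, 7.18 and 7.96 CPM in N2. The Y102A5C.6 difference was -5.67 ± 0.29 (edgeR adjusted p = 4.62e-12), without overlap, and rhy-1 was called lower and vhl-1 higher than N2. The gene F41C3.2 had 18.9, 20.5 and 19.1 CPM in rhy-1, against 0.657, 0.336 and 0.115 CPM in vhl-1 and 6.0, 4.24 and 3.98 CPM in N2. For F41C3.2 the log2 fold change was 5.65 ± 0.36 (edgeR adjusted p = 1.36e-10), with no overlap between the mutants, and rhy-1 was called higher and vhl-1 lower than N2. The gene ugt-14 had 17.4, 16.6 and 19.1 CPM in rhy-1, against 0.329, 0.560 and 0.230 CPM in vhl-1 and 2.58, 1.06 and 2.05 CPM in N2. Between the mutants ugt-14 differed by 5.51 ± 0.44 (edgeR adjusted p = 9.85e-09), with every rhy-1 library above every vhl-1 library, and rhy-1 was called higher and vhl-1 lower than N2.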

How the data were processed

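RNA of 21 whole-worm pools was sequenced, 3 per genotype. Per the submitters' processing notes, reads were converted with bcl2fastq 1.8.4 and assigned to transcripts with kallisto; kallisto's version, its transcript set and the genome build were not given in the sources used here. Per library, the authors deposited, per the file headers, estimated counts and TPM for each of 32905 transcripts. TPM, which the authors scaled by transcript length, served for no test and is not printed.

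Estimated counts, 66.6% of them whole within 1e-06, were summed per gene by name against the WBcel235 annotation and rounded. Of the transcripts, 28369 matched by transcript name and 4229 by sequence name. The other 307, with 0.115 to 0.127% of the counts of the 6 libraries, matched no annotated gene. They were kept under their own 285 sequence names, which are counted among the 22037 genes. The 97 symbols shared by several identifiers were kept apart. Genes that passed the filter of edgeR with min.count at 10 were fitted in 1 quasi-likelihood model of genotype over all 21 libraries with TMM scaling (R 4.3.3, edgeR 4.0.16, limma 3.58.1), and p-values were Benjamini-Hochberg adjusted over all tested genes. Standard errors were derived from the F statistic and restate it. Sums of 3 or fewer counts over a group were treated as a bound or a ratio of counts. List levels are mean log2 of CPM plus 0.2.

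Named genes were the 15 largest called differences each way at a mean of at least 10 CPM with a gene name and separated libraries, the 2 largest each way whatever their name, all members of 4 HIF-1, sulfide and iron lists, up to 8 called members of every other list, and the 10 largest of those called on opposite sides of N2. The comparison, its members and the gene lists were chosen with earlier results of these data known. Alternatives were RLE scaling, other filters, the 6 libraries alone, the replicate number as a block, DESeq2 1.42.0, single transcripts, an L4 molt covariate, an adjusted p below 0.01 and each library left out. No sequence is shown because none of the reference files used here holds one. No pair of libraries held identical values.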

Additional observations from a re-analysis of the deposited data

Results flagged for a closer look

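In 46 genes, with clec-209 counted under both of its identifiers, rhy-1 and vhl-1 were called in opposite directions against N2. The 10 with the largest difference between the mutants were singled out. Since the 10 were picked by the size of that difference, its edgeR adjusted p, at most 0.000129, restates the choice and is no separate test. Higher in rhy-1 than in N2 and lower in vhl-1 than in N2 were F41C3.2 (log2 fold change of rhy-1 over vhl-1 5.65), ugt-14 (5.51), pgph-3 (5.42), F18E3.12 (3.99), C27B7.9 (3.80), F23F12.12 (3.78) and lys-7 (3.71). Lower in rhy-1 and higher in vhl-1 than in N2 were F45D11.14 (-6.86), Y102A5C.6 (-5.67) and clec-209 (-4.59).

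F45D11.14 had 0, 5.3 and 5.57 CPM in rhy-1, against 368, 95.4 and 798 CPM in vhl-1 and 27.5, 62.6 and 77.1 CPM in N2, and it lies in a run of near-identical genes whose reads the counting could split. Its call was lost with only the 6 libraries of these mutants fitted. F18E3.12 had 6.85, 7.90 and 7.26 CPM in rhy-1, against 0.219, 0.784 and 0.345 CPM in vhl-1 and 2.17, 1.29 and 1.81 CPM in N2. C27B7.9 had 6.85, 8.60 and 10.097 CPM in rhy-1, against 0.877, 0.672 and 0.230 CPM in vhl-1 and 3.20, 1.65 and 2.17 CPM in N2. F23F12.12 had 51.8, 60.1 and 65.2 CPM in rhy-1, against 2.41, 8.06 and 2.42 CPM in vhl-1 and 28.5, 23.3 and 23.2 CPM in N2. The rhy-1 and vhl-1 libraries did not overlap in any of these 4 genes, and the values of the others stand in the results above.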

How the results depend on the processing

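Of 257 named genes called between rhy-1 and vhl-1, 113 stayed called under every alternative run that tested them, and 1 changed sign. The 113 do not take in the adjusted p below 0.01. A setting whose filter dropped a gene was not counted for that gene. Of the 27 named genes not called, 24 were called under none. The sign changed in elo-1, which stood at -0.31 ± 0.09 by gene and had 7.72 for 1 of its transcripts (edgeR adjusted p = 0.47726). The call was lost for 107 named genes with the L4 molt covariate, 91 with transcripts tested one by one and 71 without vhl-1 replicate 3, against 6 with DESeq2. The causes were not tested. RLE scaling called 1912 genes (1817 of the 1852 among them), no filter 1773, a filter at 30 counts 1885, the 6 libraries alone 1682 and DESeq2 1897.

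With the L4 molt covariate 851 genes were called, 522 higher and 329 lower in rhy-1, and 27 lay on opposite sides of N2. Among its calls 277 higher genes were also higher in egl-9 than N2, 94 lower genes also lower, and 38 and 18 likewise in egl-9 against egl-9;vhl-1. Transcripts tested one by one gave 989 called, 480 higher, 518 at least 2-fold and 29 on opposite sides, with 258, 175, 25 and 16 in the same 4 overlaps. An adjusted p below 0.01 gave 996 called, 618 higher, 378 lower and 29 on opposite sides, with 325, 109, 37 and 14 in the overlaps. Fewer genes pass a stricter threshold by construction.

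Leaving out each library in turn gave 1192 to 1987 called genes, 683 to 1212 higher, 497 to 914 lower, 632 to 1002 at least 2-fold and 31 to 53 on opposite sides of N2. The overlaps ran from 381 to 742 and 155 to 340 with egl-9 against N2, and from 55 to 303 and 17 to 80 with egl-9 against egl-9;vhl-1. The replicate block called 1782 genes, 1729 of them among the 1852. The numbers were not taken to pair the samples, since libraries with the same number had correlations of -0.00, 0.07 and 0.11 in their deviations from the group means. Depth limits genes near the filter: 38 genes called higher and 8 called lower had 3 or fewer counts in the lower mutant.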
